A study of Homo sapiens with 12 samples.

Results

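Gene expression in the cytokine-stimulated keratinocytes carrying a hairpin against IQGAP3 was compared with that in the unstimulated control keratinocytes, across every gene that was expressed in either. A gene was taken when it reached at least 1 CPM (counts per 1000000 counts) in 3 or more of these 6 libraries, which left 13695 of the 57370 genes in the count table. The 6 libraries were 3 of HaCaT_sh+cyto and 3 of HaCaT_ctrl, out of 12 in the series, whose other groups were HaCaT_ctrl+cyto and HaCaT_sh. HaCaT is an immortalized line of human epidermal keratinocytes. HaCaT_sh+cyto cells carried a lentiviral, doxycycline-inducible small hairpin RNA (shRNA) against IQGAP3. After 24 h of doxycycline they received 3 cytokines, IL-17 at 100 ng/mL, IFNγ at 20 ng/mL, and 25 ng/mL of TNFα, and were kept in them for 72 h. HaCaT_ctrl cells carried a scrambled shRNA in the same vector and received no cytokine. Doxycycline (1000 ng/mL) was given to all groups, from 4 h after seeding. Both lines were stable clones selected with puromycin, so a group is a model of 1 engineered line. The groups differed in line and in cytokines at once, so the shares of the hairpin, the clone and the cytokines in a difference cannot be told apart in this comparison. The levels in HaCaT_ctrl+cyto and HaCaT_sh are therefore given beside some of the results. The labels call the replicates biological, without saying whether they were separate cultures or separate experiments, and p-values measure the spread between these libraries.

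IQGAP3 is a scaffold protein that binds small GTPases and calmodulin and is made mostly by dividing cells. IL-17 and TNFα act on keratinocytes largely through NF-kB and C/EBP factors and call out chemokines and antimicrobial proteins, whereas IFNγ acts through JAK kinases and STAT factors on antigen presentation and antiviral genes. In psoriatic skin these signals act together, and keratinocytes there divide more, differentiate abnormally and attract leukocytes.

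The hairpin's target is shown because the label of the line rests on it. It has 24 bases and lies at chr1:156496314-156496337 on the minus strand of GRCh37, in the coding sequence of exon 38 of 38 of the canonical IQGAP3 transcript. It matched 2 of the 4 annotated IQGAP3 transcripts exactly and no transcript of another gene. Capitals mark the whole target, read 5′ to 3′ in the sense of the mRNA.
IQGAP3 target: GCCAAAGTCAATGTCAACCTTCTC

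IQGAP3 had 1.15, 1.64 and 0.917 CPM in the libraries labelled HaCaT_sh+cyto, against 74.2, 69.6 and 76.5 CPM in those labelled HaCaT_ctrl. The groups were far apart, with a log2 fold change (log2FC, HaCaT_sh+cyto over HaCaT_ctrl) of -5.90 (SE 0.128, edgeR adjusted p = 1.42e-10), and an exact permutation test gave a 2-sided p of 0.1, the smallest that 3 against 3 libraries allow. IQGAP3 had 1.9, 3.98 and 4.08 CPM in HaCaT_ctrl+cyto, which carried the scrambled shRNA, and 114.6, 100.6 and 97.9 CPM in the libraries labelled HaCaT_sh, which per the label carried the hairpin against IQGAP3 and received no cytokine. The unstimulated libraries labelled HaCaT_sh thus lay above those labelled HaCaT_ctrl, against the label, and low IQGAP3 in the comparison went with the cytokines. The study also assessed the knockdown in the line by qPCR and Western blot, which were taken to show it and are not part of the data analysed here. Whether the labels or the action of the hairpin account for the order of the unstimulated libraries was not tested. The level in HaCaT_sh+cyto was below that in HaCaT_ctrl+cyto, and the cytokine response differed between the lines by -1.96 on the log2 scale (SE 0.308, adjusted p = 6.87e-04). IQGAP1, the widely expressed family member, had 471.8, 453.7 and 437.2 CPM in HaCaT_sh+cyto, against 560.3, 538.2 and 568.1 CPM in HaCaT_ctrl. Its groups did not overlap, but the log2FC of -0.28 was under 2-fold and it was not called. IQGAP2 stayed between 0 and 0.287 CPM in the 6 libraries and was not tested.

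Total counts were 13079055 to 17135245 (median 16064747) in HaCaT_sh+cyto and 13982913 to 16999594 (median 15855853) in HaCaT_ctrl. The first principal component of the log2 CPM values held 95.9% of the variance and separated the groups. TMM scaling factors were 0.888 to 0.92 in HaCaT_sh+cyto and 1.1 to 1.11 in HaCaT_ctrl. HaCaT_sh+cyto replicate 3 stood apart from the other replicates of its group on the second component, which held 2.15% of the variance. It had the highest levels of many interferon-responsive genes. For the genes named by the rules given below, the calls that changed without it are stated beside them. For the other list members such changes are not given gene by gene, so calls close to 2-fold among them are less certain.

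A gene was called when edgeR's quasi-likelihood test gave an adjusted p below 0.01 (Benjamini-Hochberg over all tested genes) and the change was at least 2-fold. By this rule 5169 genes (37.7%) differed, 2096 higher (15.3%) and 3073 lower (22.4%) in HaCaT_sh+cyto. The CPM ranges of the groups did not overlap for 11491 genes (83.9%). With so many genes apart, a count of called members of a gene list is read below against 15.3% higher and 22.4% lower. At any fold 10306 genes (75.3%) had an adjusted p below 0.01, 5064 of them higher. The median log2FC over all tested genes was -0.0327 and the median absolute one 0.731. Changes of at least 8-fold were found in 358 genes that rose and 745 that fell, and changes of at least 64-fold in 102 and 156. The scaling mattered to the direction: 40.5% of the calls were higher with TMM, but 27.2% when libraries were scaled by size alone (1448 higher and 3880 lower), which shifted the median log2FC by -0.284. Of the called genes, 1 had groups that overlapped. This was FOXF2-DT, a long non-coding RNA, with 2.44, 2.06 and 0.917 CPM in HaCaT_sh+cyto, against 0.26, 0.919 and 0.48 CPM in HaCaT_ctrl, and it is named here after its values were seen.

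**Figure D1:**
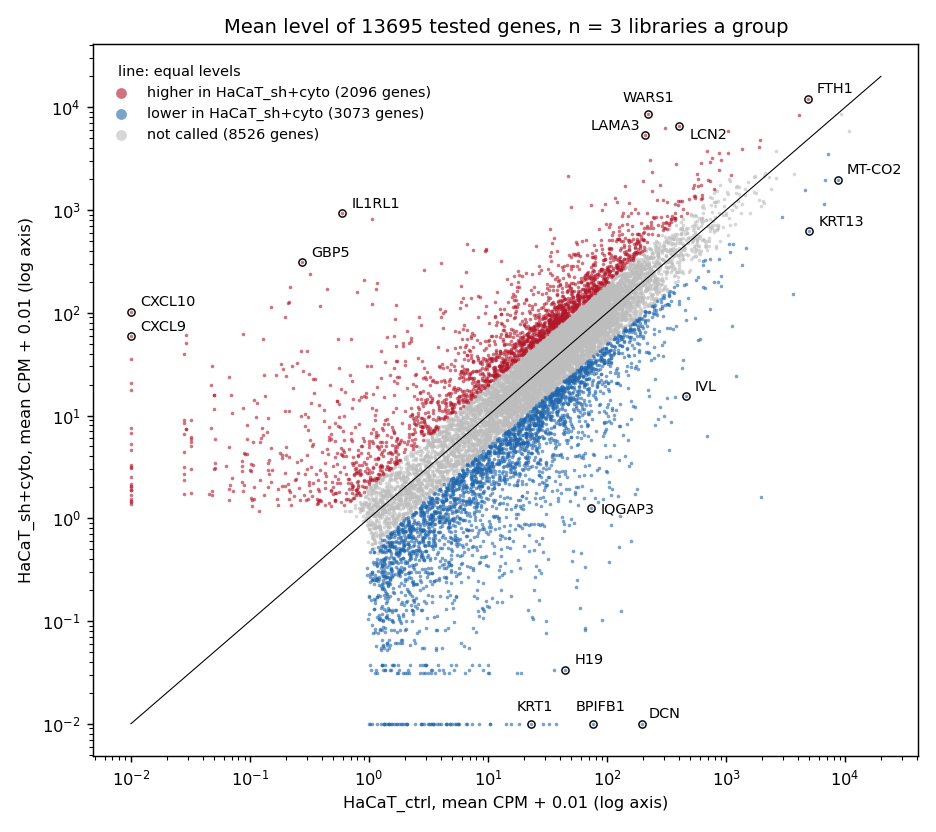
Mean CPM plus 0.01 of each of the 13695 tested genes in HaCaT_sh+cyto (vertical, log axis) against HaCaT_ctrl (horizontal, log axis), means of 3 libraries a group. Red points are the 2096 genes called higher, blue points the 3073 called lower, grey points the rest, and the line marks equal levels. The rows of points on the left and lower edges are genes with no count in one group, such as CXCL10 and DCN.

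Protein-coding genes made up 11997 of the tested genes, and 15.5% of them rose and 20.6% fell. Of 1057 long non-coding RNAs 12.1% rose and 44.5% fell, with a median log2FC of -0.82. Of 408 pseudogenes 71 rose and 95 fell.

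Keratinocyte markers were high in both groups, as the label says. The summed level of the 12 markers was 9870 to 10700 CPM in HaCaT_sh+cyto and 12300 to 12800 CPM in HaCaT_ctrl, and 2 rose, 2 fell and 8 were not called. KRT5, a keratin of the basal layer, had 141, 149.9 and 164 CPM in HaCaT_sh+cyto, against 3712, 3682 and 3603 CPM in HaCaT_ctrl (log2FC -4.59, SE 0.0704, adjusted p = 2.47e-11). KRT14, its partner keratin, had 1120, 1010 and 1600 CPM in HaCaT_sh+cyto, against 1970, 1880 and 1860 CPM in HaCaT_ctrl, and was not called. TP63, the transcription factor of the basal layer, had 108, 112 and 88.4 CPM in HaCaT_sh+cyto, against 212, 214 and 214 CPM in HaCaT_ctrl (log2FC -1.05, SE 0.0833, adjusted p = 9.26e-07). Without HaCaT_sh+cyto replicate 3 its log2FC was -0.95, under 2-fold. The desmosomal plaque protein DSP and the stress keratin KRT17 rose. In bulk RNA, fewer cells of a type and less RNA per cell cannot be told apart.

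Markers of other cell types that such a culture could hold were low in HaCaT_sh+cyto. Of 8 fibroblast markers 4 were tested and 2 fell, and their sum was 8.46 to 11.1 CPM in HaCaT_sh+cyto and 199 to 243 CPM in HaCaT_ctrl. Most of that sum was DCN in HaCaT_ctrl and COL1A1 in HaCaT_sh+cyto. COL1A1 had 7.37, 7.97 and 9.24 CPM in HaCaT_sh+cyto, against 16.6, 15.3 and 15.2 CPM in HaCaT_ctrl. TWIST2 had 1.09, 1.48 and 1.76 CPM in HaCaT_sh+cyto, against 1.63, 1.15 and 1.12 CPM in HaCaT_ctrl. Neither COL1A1 nor TWIST2 was called. COL1A2, COL3A1, PDGFRA and PDGFRB stayed at or below 0.267 CPM in every library of both groups. Of 6 melanocyte markers 2 were tested and PMEL fell, with TYR and SOX10 at 0 in all 6 libraries. The sum was at most 11.4 CPM in HaCaT_sh+cyto and 16.4 to 19.9 CPM in HaCaT_ctrl. None of 7 immune cell markers was tested, with FCER1A and CD207 at 0, and their sum was 0.256 to 0.575 CPM in HaCaT_sh+cyto and 0.781 to 1.03 CPM in HaCaT_ctrl. The endothelial markers CDH5 and VWF fell (log2FC -5.27 and -4.23), and without HaCaT_sh+cyto replicate 3 their values were -6.03 and -4.88. Of the 4 listed endothelial markers, PECAM1 was not found in the count table, and KDR did not pass the filter. KDR had 0.128, 0.247 and 0.212 CPM in HaCaT_sh+cyto, against 0.0651, 0.0574 and 0.0534 CPM in HaCaT_ctrl. With KDR, the list summed to 0.493 to 1.27 CPM in HaCaT_sh+cyto and 17.4 to 18.9 CPM in HaCaT_ctrl. The Merkel cell list summed to 3.29 to 3.53 CPM in HaCaT_sh+cyto and 7.1 to 8.67 CPM in HaCaT_ctrl, and ATOH1 was at 0 in all 6 libraries. SYP of that list fell, and KRT20 fell as well without HaCaT_ctrl replicate 3 or without HaCaT_sh+cyto replicate 3. The part of these cell types in the results was not tested.

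The largest increases were in genes that HaCaT_ctrl hardly expressed. CXCL10, a chemokine that draws T cells through CXCR3, had 74.3, 68.8 and 165 CPM in HaCaT_sh+cyto, against 0, 0 and 0 CPM in HaCaT_ctrl. It was present in every stimulated library, most in replicate 3, and had no count in any HaCaT_ctrl library. With a floor of 3 counts over the group, it was at least 1770-fold higher (adjusted p = 2.78e-06). CXCL9, another ligand of CXCR3, had 52.1, 59.8 and 64.8 CPM in HaCaT_sh+cyto and none in HaCaT_ctrl, at least 1010-fold higher. Among the genes with no count in HaCaT_ctrl were also ESM1, an endothelial proteoglycan, at 40.6, 45 and 20.9 CPM in HaCaT_sh+cyto (at least 605-fold higher), and GZMB, a protease known from cytotoxic lymphocytes, at 21.2, 25 and 16.5 CPM (at least 356-fold higher). KRT33B, a hair keratin, had 17.1, 17.5 and 18 CPM, at least 301-fold higher, though reads of such keratins can be shared with near-identical family members. In all, 23 tested genes had no count in HaCaT_ctrl.

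IL1RL1, the receptor of interleukin 33, had 975, 994 and 828 CPM in HaCaT_sh+cyto, against 0.26, 0.804 and 0.694 CPM in HaCaT_ctrl, so a gene near zero in the control was abundant in every stimulated library (log2FC 10.59, SE 0.174, adjusted p = 2.85e-11). GBP5, an interferon-induced guanylate-binding protein, had 284, 264 and 385 CPM in HaCaT_sh+cyto, against 0.13, 0.23 and 0.427 CPM in HaCaT_ctrl (log2FC 10.13, SE 0.251, adjusted p = 2.86e-10). The groups of both genes lay far apart. IGFN1 had 56.3, 65.8 and 58.5 CPM in HaCaT_sh+cyto, against 0, 0.0575 and 0 CPM in HaCaT_ctrl, and its log2FC of 11.10 was 12.84 without HaCaT_ctrl replicate 2, the only control library with a count. The same library decided the size for SPRR2F, which encodes a small proline-rich protein found in the cornified envelope. SPRR2F had 48.2, 47.2 and 58.5 CPM in HaCaT_sh+cyto, against 0, 0.0575 and 0 CPM in HaCaT_ctrl, with a log2FC of 10.88, and 12.61 without that library. RGS4, a regulator of G protein signalling, had 43.8, 42.5 and 32.3 CPM in HaCaT_sh+cyto, against 0, 0 and 0.0534 CPM in HaCaT_ctrl. Its log2FC was 10.50, and 12.21 without HaCaT_ctrl replicate 3.

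The largest decreases were genes with no count left in any HaCaT_sh+cyto library. DCN, the matrix proteoglycan decorin, had 0, 0 and 0 CPM in HaCaT_sh+cyto, against 188, 222 and 177 CPM in HaCaT_ctrl, at least 2730-fold lower (adjusted p = 1.40e-09). BPIFB1, a secreted protein of mucosal surfaces, had 75.9, 83.7 and 70.4 CPM in HaCaT_ctrl and none in HaCaT_sh+cyto, at least 1070-fold lower. GPR15LG, the ligand of GPR15, a homing receptor of T cells, had 34.6, 31.6 and 31.7 CPM in HaCaT_ctrl (at least 455-fold lower). In unstimulated HaCaT_sh, DCN averaged 25.6 CPM, BPIFB1 16.5 CPM and GPR15LG 27.5 CPM. In HaCaT_ctrl+cyto the means of DCN, BPIFB1 and GPR15LG were 0, 0.336 and 0.0219 CPM, so the stimulated control line had almost none of them either. KRT1, a keratin of the suprabasal layers, had 24.1, 22.5 and 22.6 CPM in HaCaT_ctrl (at least 322-fold lower). The others were MTUS2, SPTSSB, which sits in the enzyme that starts sphingolipid synthesis, the complement inhibitor CFI, the DNA helicase PIF1, the mucosal scavenger protein DMBT1 and TP73, a transcription factor of the p53 family. Their means in HaCaT_ctrl were 29, 18.2, 15.6, 14.1, 10.3 and 10.3 CPM, and they were at least 405, 254, 217, 197, 144 and 144-fold lower. In all, 65 tested genes had no count in HaCaT_sh+cyto.

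**Figure D2:**
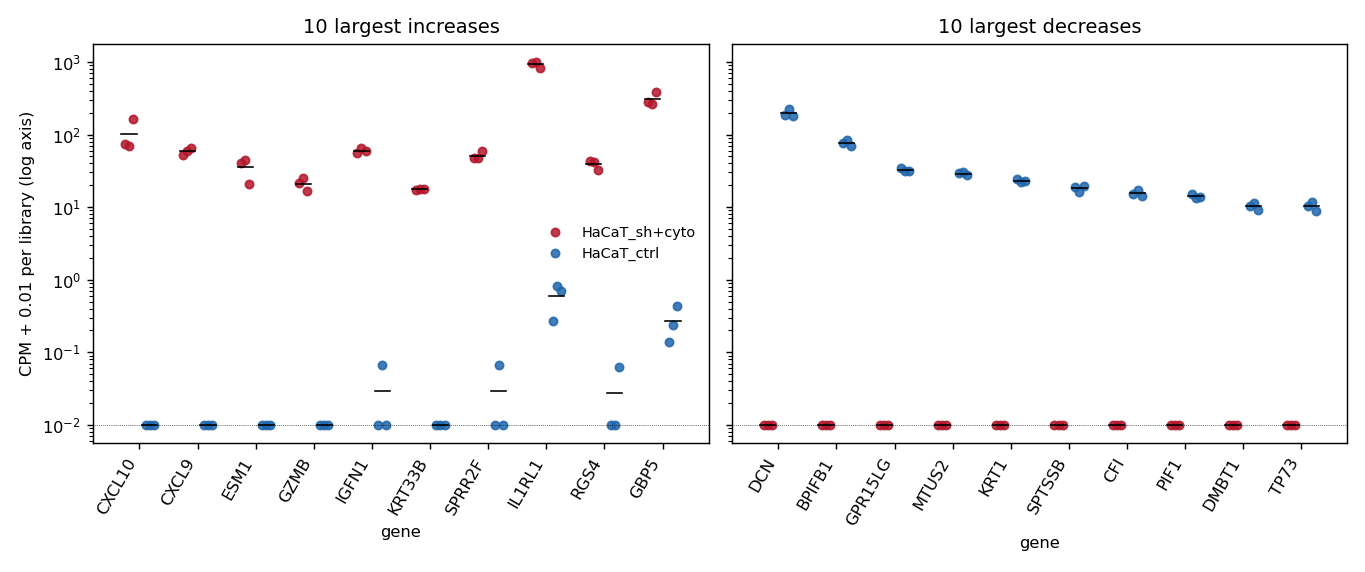
CPM plus 0.01 in each library (log axis) for the 10 protein-coding genes with the largest increase (left panel) and the 10 with the largest decrease (right panel). Red points are the 3 HaCaT_sh+cyto libraries, blue points the 3 HaCaT_ctrl libraries, and black bars their means. Points on the dotted line had no count. Only called genes whose groups did not overlap and whose higher group averaged at least 5 CPM were eligible, so the lack of overlap was set by the choice.

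Promoters of 4 of the genes with large increases are given because the cytokines act through factors whose sites can be read in them. Only promoters that held a match to an interferon, STAT or NF-kB motif were eligible, and genes with larger increases but no match were passed over. That each of the 4 holds a match was thus fixed by the choice and says nothing about induced genes in general. They are RefSeq sequences on GRCh38.p14 from 250 bases before to 50 bases after the start site, on the strand of the gene. CXCL10 lies at chr4:76023448-76023747, CXCL9 at chr4:76007460-76007759, CXCL11 at chr4:76036021-76036320 and KRT33B at chr17:41369764-41370063, all on the minus strand. Capitals mark matches on either strand to the core of the interferon-stimulated response element (GAAANNGAA), to a STAT site (TTCNNNGAA) or to an NF-kB site (GGANTTTCC).
CXCL10: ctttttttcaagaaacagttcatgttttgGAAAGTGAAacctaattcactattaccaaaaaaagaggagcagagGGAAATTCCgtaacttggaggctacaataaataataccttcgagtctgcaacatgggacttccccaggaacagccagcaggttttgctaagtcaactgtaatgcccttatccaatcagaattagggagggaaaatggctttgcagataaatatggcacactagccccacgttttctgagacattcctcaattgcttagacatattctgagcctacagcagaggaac
CXCL9: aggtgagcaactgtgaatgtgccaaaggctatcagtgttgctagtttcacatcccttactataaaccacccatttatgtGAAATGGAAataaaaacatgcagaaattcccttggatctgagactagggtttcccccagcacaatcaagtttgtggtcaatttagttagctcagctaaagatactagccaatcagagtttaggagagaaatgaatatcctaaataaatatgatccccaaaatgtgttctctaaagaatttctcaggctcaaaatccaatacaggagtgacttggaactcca
CXCL11: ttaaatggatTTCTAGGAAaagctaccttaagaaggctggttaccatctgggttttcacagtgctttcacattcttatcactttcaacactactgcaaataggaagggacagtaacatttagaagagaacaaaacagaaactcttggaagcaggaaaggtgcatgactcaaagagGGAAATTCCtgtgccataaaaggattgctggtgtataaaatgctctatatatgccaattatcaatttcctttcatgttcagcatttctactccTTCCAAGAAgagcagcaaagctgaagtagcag
KRT33B: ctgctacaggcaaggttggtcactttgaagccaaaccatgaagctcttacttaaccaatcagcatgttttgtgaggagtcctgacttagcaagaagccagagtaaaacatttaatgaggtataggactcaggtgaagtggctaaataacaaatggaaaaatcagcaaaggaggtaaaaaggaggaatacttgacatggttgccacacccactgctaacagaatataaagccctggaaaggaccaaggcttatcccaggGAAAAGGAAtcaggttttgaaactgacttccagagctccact

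The CXCL10 window held the response element core at -221 and the NF-kB letters at -176 from the start site. CXCL9 held the core at -171 and KRT33B at 9, and CXCL11 held STAT letters at -240 and 19 and NF-kB letters at -75. Over all called genes with a promoter in the table, the core was found in 7.85% of 1515 promoters of genes that rose, 5.92% of 2196 of genes that fell and 6.44% of 10303 of tested genes, and in 8.29% of all 27305 promoters. The STAT letters were found in 6.2%, 5.87%, 6.18% and 7.88% of these sets, and the NF-kB letters in 2.77%, 1.32%, 1.61% and 1.64%. The AP-1 letters TGANTCA were found in 7.46%, 5.24%, 4.7% and 7.76%. A match describes the letters in the window and no more.

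Chemokines rose for the most part. Of 12 tested genes of the list 9 rose, 2 fell and 1 was not called, with a median log2FC of 2.74 (all tested genes, -0.0327). CXCL8, which draws neutrophils, had 104, 78.9 and 169.8 CPM in HaCaT_sh+cyto, against 1.43, 1.15 and 2.4 CPM in HaCaT_ctrl (log2FC 6.13, SE 0.352, adjusted p = 8.23e-08). CXCL11, a further ligand of CXCR3, had 22.1, 19.2 and 43.9 CPM in HaCaT_sh+cyto, against 0.325, 0.0575 and 0.16 CPM in HaCaT_ctrl. Its log2FC was 7.29, and 7.91 without HaCaT_ctrl replicate 1. CXCL16 had 484, 408 and 621 CPM in HaCaT_sh+cyto, against 139, 135 and 133 CPM in HaCaT_ctrl, and CXCL1 had 21.6, 15.9 and 25.7 CPM in HaCaT_sh+cyto, against 3.64, 2.93 and 4.11 CPM in HaCaT_ctrl, so that for both every stimulated library was above every control one. Their log2FC values were 1.90 and 2.57. CXCL3 and CXCL5, neutrophil chemokines like CXCL1, and CCL28, a mucosal chemokine, rose (log2FC 2.91, 5.96 and 1.68). The monocyte chemokine CCL2 fell, with 0.32 ± 0.213 CPM in HaCaT_sh+cyto and 4.46 ± 0.357 CPM in HaCaT_ctrl (log2FC -3.71), and so did CCL22 (log2FC -1.29). CXCL2, CXCL12, CXCL14, CX3CL1, CCL20, CCL26 and CCL27 did not pass the filter. The summed level of the list was 804, 691 and 1157 CPM in HaCaT_sh+cyto replicates 1, 2 and 3, so replicate 3 was highest, and without it the counts stayed at 9 and 2.

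Interleukins and growth factors of inflammation had the highest median of the lists described here, 4.40, or 4.12 with genes absent from one group at their bound. Of 20 tested genes 13 rose, 4 fell and 3 were not called. The interleukin 1 family genes IL1A, IL1B and IL36G were near 0 in HaCaT_ctrl and present in every stimulated library. IL1A had 53.6, 60.2 and 53.4 CPM in HaCaT_sh+cyto, against 0.456, 0.402 and 0.747 CPM in HaCaT_ctrl (log2FC 6.67, SE 0.152, adjusted p = 1.77e-10). IL1B had 84.3, 87.4 and 91.8 CPM in HaCaT_sh+cyto, against 1.5, 1.09 and 2.35 CPM in HaCaT_ctrl (log2FC 5.72, SE 0.147, adjusted p = 3.70e-10), and IL36G, a cytokine of inflamed epidermis, had 11.8, 9.95 and 13 CPM in HaCaT_sh+cyto, against 0.0651, 0 and 0.0534 CPM in HaCaT_ctrl (log2FC 7.96, SE 0.334, adjusted p = 8.82e-09). The natural antagonists of the family rose as well, IL1RN (log2FC 1.92) and IL36RN (log2FC 5.22). LIF, a cytokine of the interleukin 6 family, had 246, 230.4 and 206 CPM in HaCaT_sh+cyto, against 20.2, 18.1 and 19.2 CPM in HaCaT_ctrl (log2FC 3.58, SE 0.0838, adjusted p = 2.03e-10). IL32 had 150.1, 143 and 214 CPM in HaCaT_sh+cyto, against 1.24, 0.862 and 1.33 CPM in HaCaT_ctrl, highest in replicate 3 (log2FC 7.20, SE 0.22, adjusted p = 1.03e-09). The colony-stimulating factors CSF2 and CSF3 rose (log2FC 6.99 and 8.58), as did IL23A and IL24 (log2FC 6.07 and 7.54). The members that fell were IL7 (log2FC -1.90), IL15 (log2FC -2.61), the death ligand TNFSF10 (log2FC -3.88) and TNFSF15 (log2FC -1.67). IL6, IL19, IL20, TNF and 8 others did not pass the filter.

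The receptors and proximal signalling proteins of the cytokines were mostly not called (14 of 20), with 3 higher and 3 lower, shares close to or below those over all genes. IL17RC, part of the receptor that IL-17 binds, had 6.28, 7.07 and 6.56 CPM in HaCaT_sh+cyto, against 17.3, 16.4 and 15.8 CPM in HaCaT_ctrl (log2FC -1.31, SE 0.103, adjusted p = 8.91e-07). IL17RE, a related receptor, had 1.02, 0.411 and 0.353 CPM in HaCaT_sh+cyto, against 16, 16.6 and 15.5 CPM in HaCaT_ctrl, so the control libraries were all higher. Its log2FC was -4.67, and -5.37 without HaCaT_sh+cyto replicate 1. IL17RD rose, with 4.55, 5.75 and 5.5 CPM in HaCaT_sh+cyto, against 0.39, 0.172 and 0.427 CPM in HaCaT_ctrl (log2FC 3.96, SE 0.272, adjusted p = 2.96e-07). Among the adaptors TRAF3, which restrains non-canonical NF-kB signalling, rose (log2FC 2.10), as did TAB3 (log2FC 1.68), and TRAF5 fell (log2FC -1.58). IL17RA, TNFRSF1A, IFNGR1, IFNGR2, JAK1 and JAK2 had log2FC values between -0.7 and 0.29 and were not called.

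In the NF-kB list 8 of 22 tested genes rose and 2 fell, and the largest increase was in an inhibitor that the pathway itself induces. This was TNFAIP3, which removes ubiquitin from signalling proteins, with 426, 418 and 418 CPM in HaCaT_sh+cyto, against 9.89, 9.71 and 9.4 CPM in HaCaT_ctrl (log2FC 5.45, SE 0.0597, adjusted p = 8.03e-12). Its partner TNIP1 had 408, 404 and 447 CPM in HaCaT_sh+cyto, against 106, 105 and 100.0 CPM in HaCaT_ctrl, again with no overlap (log2FC 2.03, SE 0.0562, adjusted p = 5.45e-10). The subunit RELB rose (log2FC 2.08), as did NFKB2 (log2FC 1.53), while REL fell (log2FC -1.27). The nuclear co-activator NFKBIZ, needed for many IL-17 targets, had 116, 110.1 and 143 CPM in HaCaT_sh+cyto, against 29.9, 31.9 and 29.3 CPM in HaCaT_ctrl (log2FC 2.03, SE 0.0945, adjusted p = 1.80e-08). NFKBIE rose (log2FC 1.92), and NFKB1, RELA, NFKBIA and the kinases CHUK and IKBKB were not called. The number of members that fell was 1 without HaCaT_sh+cyto replicate 2.

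Of 20 STAT, IRF and SOCS factors 7 rose and 4 fell. IRF1, a factor induced by IFNγ, had 488, 468 and 618 CPM in HaCaT_sh+cyto, against 162, 181 and 154 CPM in HaCaT_ctrl (log2FC 1.67, SE 0.102, adjusted p = 1.26e-07). Its groups did not overlap. SOCS1, which blocks JAK kinases, was near 0 in HaCaT_ctrl, with 17.4, 16.5 and 16.1 CPM in HaCaT_sh+cyto, against 0.13, 0.345 and 0.534 CPM in HaCaT_ctrl (log2FC 5.55, SE 0.227, adjusted p = 7.55e-09). SOCS6 rose (log2FC 1.26) and STAT6 fell (log2FC -1.05). STAT4, IRF5 and CISH fell too (log2FC -2.09, -1.43 and -1.005), and STAT2, STAT3, IRF7 and IRF9 were not called.

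Guanylate-binding and APOL proteins, which act against intracellular pathogens, rose in 5 of 11 tested genes and fell in none, with a median log2FC of 0.897. Besides GBP5, GBP1 had 130.1, 132 and 156 CPM in HaCaT_sh+cyto, against 6.9, 7.64 and 6.94 CPM in HaCaT_ctrl (log2FC 4.29, SE 0.0937, adjusted p = 1.46e-10). GBP6 had 68.2, 64.8 and 88.1 CPM in HaCaT_sh+cyto, against 14.2, 12.7 and 13.7 CPM in HaCaT_ctrl, and GBP7 had 6.6, 5.34 and 9.73 CPM in HaCaT_sh+cyto, against 0.325, 0.46 and 0.107 CPM in HaCaT_ctrl. In each of them HaCaT_sh+cyto replicate 3 was the highest library and no control library reached the stimulated ones. APOL6 rose (log2FC 1.64), and GBP2, APOL1, APOL2 and APOL3 had log2FC values between -0.37 and -0.02.

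Of 21 MHC class I and peptide-loading genes 9 rose and 2 fell. HLA-B, a heavy chain of the complex, had 3143, 3071 and 3451 CPM in HaCaT_sh+cyto, against 749, 809 and 732 CPM in HaCaT_ctrl (log2FC 2.08, SE 0.0646, adjusted p = 1.12e-09), and HLA-C had 1129, 1098 and 1192 CPM in HaCaT_sh+cyto, against 373, 383 and 369 CPM in HaCaT_ctrl (log2FC 1.61, SE 0.0511, adjusted p = 1.31e-09). Reads can be shared among HLA genes, so single values are uncertain. B2M, the light chain, rose (log2FC 1.12), and the peptide transporter genes TAP1 and TAP2 rose (log2FC 2.69 and 1.40). NLRC5, the transactivator of class I genes, rose (log2FC 2.45). HLA-F and the chaperone gene CANX rose (log2FC 1.59 and 1.36). The aminopeptidase gene ERAP1, which trims peptides for loading, fell, with 32, 30.7 and 32.5 CPM in HaCaT_sh+cyto, against 102, 102 and 99.6 CPM in HaCaT_ctrl (log2FC -1.67, SE 0.0531, adjusted p = 1.35e-09). The immunoproteasome genes PSMB8, PSMB9 and PSMB10 were not called (log2FC values 0.88, 0.48 and -0.54).

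Class II presentation did not move as a group, with 3 of 15 tested genes higher, 3 lower and 9 not called, shares close to those over all genes. The invariant chain CD74 had 209.9, 267 and 170.1 CPM in HaCaT_sh+cyto, against 64.3, 81.5 and 66.4 CPM in HaCaT_ctrl (log2FC 1.61, SE 0.155, adjusted p = 3.92e-06). RFX5, a factor that binds class II promoters, had 37.5, 32.5 and 43.7 CPM in HaCaT_sh+cyto, against 149.7, 162 and 145 CPM in HaCaT_ctrl (log2FC -2.00, SE 0.0919, adjusted p = 1.66e-08). HLA-DMB fell (log2FC -2.40) and HLA-DQA1 rose (log2FC 2.31), both at a few CPM at most. HLA-DMA had a log2FC of -1.02, which was under 2-fold without any of HaCaT_ctrl replicate 2 and HaCaT_sh+cyto replicates 1 and 3, at -0.92, -0.93 and -0.99. HLA-DQA2, near-identical to HLA-DQA1, was called at 1.47 (adjusted p = 0.00406), but the call was lost without any of HaCaT_ctrl replicates 1 and 2 and HaCaT_sh+cyto replicates 1 and 2 (1.32, 1.18, 1.5 and 1.32), and the value was 2.1 without HaCaT_ctrl replicate 3. CIITA, the master regulator of class II genes, was not called at 0.39.

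Antiviral interferon-stimulated genes rose in 19 of 37 tested and fell in 5, with a median log2FC of 1.19. RSAD2, which blocks viral replication, had 146, 134 and 146 CPM in HaCaT_sh+cyto, against 16, 16.5 and 15.5 CPM in HaCaT_ctrl (log2FC 3.15, SE 0.0612, adjusted p = 7.47e-11). IFI27 had 37.5, 35.8 and 29.2 CPM in HaCaT_sh+cyto, against 1.76, 2.18 and 2.08 CPM in HaCaT_ctrl (log2FC 4.08, SE 0.148, adjusted p = 3.22e-09), and BST2, which tethers budding viruses, had 23, 20.1 and 25.8 CPM in HaCaT_sh+cyto, against 2.99, 2.99 and 2.56 CPM in HaCaT_ctrl (log2FC 3.02, SE 0.133, adjusted p = 1.23e-08). The 3 genes did not overlap between groups. MX1, ISG15, ISG20, IFIT2 and IFIT3 rose (log2FC 2.74, 1.54, 2.69, 1.95 and 1.68), as did IFIT5 (log2FC 1.26). IFITM2, which keeps viruses from fusing with endosomes, fell, with 24, 21.9 and 26.9 CPM in HaCaT_sh+cyto, against 98.4, 104 and 93.5 CPM in HaCaT_ctrl (log2FC -2.01, SE 0.0779, adjusted p = 5.09e-09). IFI44, HERC5, SAMHD1 and TRIM22 fell as well (log2FC -1.12, -1.24, -1.17 and -1.74). The list summed to 5491, 4807 and 7038 CPM in HaCaT_sh+cyto replicates 1, 2 and 3, and over the 6 ways of leaving out 1 library 17 to 20 members rose and 4 to 6 fell.

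Molecules that keratinocytes show to T cells went both ways, 7 higher and 4 lower of 15 tested. ICAM1, the ligand of leukocyte integrins, had 131, 111 and 181 CPM in HaCaT_sh+cyto, against 9.04, 7.76 and 9.08 CPM in HaCaT_ctrl (log2FC 4.04, SE 0.178, adjusted p = 1.23e-08). PVR, a ligand of the receptors CD226 and TIGIT, had 430.2, 385 and 529.8 CPM in HaCaT_sh+cyto, against 24.9, 26 and 25.5 CPM in HaCaT_ctrl (log2FC 4.14, SE 0.112, adjusted p = 4.54e-10). In both, every stimulated library lay above the controls. The PD-1 ligands CD274 and PDCD1LG2 rose (log2FC 4.20 and 6.97), as did CD40 (log2FC 1.71). The co-stimulatory ligand CD86 fell, with 0.192, 0.164 and 0.212 CPM in HaCaT_sh+cyto, against 24.1, 27.4 and 21.5 CPM in HaCaT_ctrl (log2FC -6.93, SE 0.224, adjusted p = 1.51e-09). The inhibitory ligands VTCN1 and LGALS9 fell (log2FC -3.01 and -3.73).

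Antimicrobial and mucosal proteins were split, with 6 of 17 tested genes higher and 7 lower. LCN2, which withholds iron from bacteria, had 6584, 6535 and 6660 CPM in HaCaT_sh+cyto, against 396, 429 and 389 CPM in HaCaT_ctrl (log2FC 4.03, SE 0.0633, adjusted p = 2.47e-11). RNASE7, a ribonuclease that kills bacteria on skin, had 98.6, 97.7 and 105 CPM in HaCaT_sh+cyto, against 4.42, 4.48 and 3.63 CPM in HaCaT_ctrl (log2FC 4.60, SE 0.0841, adjusted p = 6.24e-11). The inducible nitric oxide synthase gene NOS2 rose (log2FC 8.09), and the acute phase genes SAA1 and SAA2, whose reads can be shared, had log2FC values of 2.52 and 3.001. The S100 alarmins, known as markers of psoriatic epidermis, fell. S100A7 had 5.32, 5.18 and 5.15 CPM in HaCaT_sh+cyto, against 39.4, 44.1 and 35.3 CPM in HaCaT_ctrl (log2FC -2.91, SE 0.111, adjusted p = 4.59e-09). S100A8 had 2.18, 2.22 and 2.26 CPM in HaCaT_sh+cyto, against 9.04, 6.43 and 6.41 CPM in HaCaT_ctrl, and S100A9, which pairs with it, had 8.07, 6.66 and 10.1 CPM in HaCaT_sh+cyto, against 45.5, 42 and 43.2 CPM in HaCaT_ctrl. No stimulated library of either gene reached a control one, and the log2FC values were -1.70 and -2.38 (adjusted p = 1.32e-05 and 2.11e-08). PIGR, which carries antibodies across epithelia, had 2.63, 1.73 and 4.02 CPM in HaCaT_sh+cyto, against 96.4, 106 and 94.5 CPM in HaCaT_ctrl (log2FC -5.12, SE 0.158, adjusted p = 1.12e-09). The bacterial cell wall sensors PGLYRP3 and PGLYRP4 and the copper protein CP fell (log2FC -4.42, -5.34 and -4.01).

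In the complement list 4 of 14 tested genes rose and 5 fell. The proteases of the first component rose, C1S with 473, 490.4 and 422 CPM in HaCaT_sh+cyto, against 7.16, 7.24 and 5.55 CPM in HaCaT_ctrl (log2FC 6.13, SE 0.109, adjusted p = 5.04e-11) and C1R with 106, 98.5 and 142 CPM in HaCaT_sh+cyto, against 8.98, 9.82 and 10.2 CPM in HaCaT_ctrl (log2FC 3.58, SE 0.14, adjusted p = 5.49e-09). Their inhibitor SERPING1 had 60.5, 53.6 and 73.1 CPM in HaCaT_sh+cyto, against 0.0651, 0.115 and 0.0534 CPM in HaCaT_ctrl, so it was close to 0 in HaCaT_ctrl (log2FC 9.52, SE 0.244, adjusted p = 3.51e-10). CD55, which protects cells from complement, rose, with 233, 248 and 257 CPM in HaCaT_sh+cyto, against 21.9, 19.1 and 21.8 CPM in HaCaT_ctrl (log2FC 3.56, SE 0.0713, adjusted p = 8.96e-11). CFI, an inhibitor that cleaves complement fragments, fell as given above. C5, CFD and CLU fell (log2FC -2.58, -1.43 and -1.34), and C3 and CFB were not called.

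Clade B serpins, which inhibit proteases inside cells, rose in 4 of 10 and fell in none. SERPINB2 had 1103, 1083 and 1248 CPM in HaCaT_sh+cyto, against 97.1, 90.1 and 100.3 CPM in HaCaT_ctrl (log2FC 3.58, SE 0.0724, adjusted p = 9.52e-11). SERPINB1, which inhibits neutrophil proteases, rose (log2FC 2.34). SERPINB3 and SERPINB4 rose (log2FC 2.16 and 2.71), and since the genes are near-identical their reads cannot be fully assigned.

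**Figure D3:**
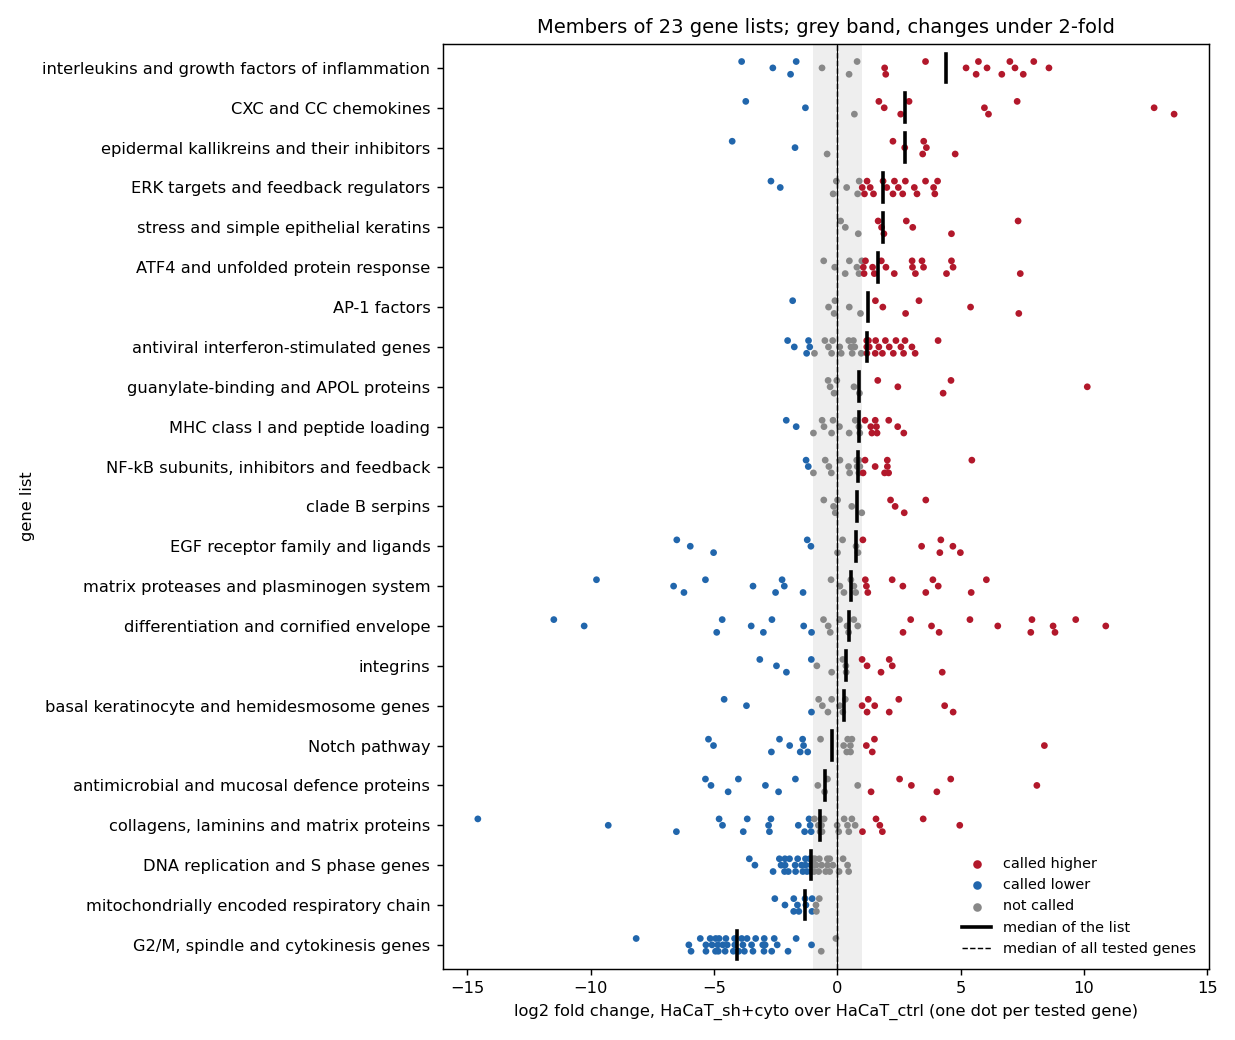
Log2 fold change of HaCaT_sh+cyto over HaCaT_ctrl (horizontal axis) for the tested members of gene lists (vertical axis), one dot a gene. Red dots were called higher, blue dots lower and grey dots not called, black bars are list medians, the dashed line is the median of all tested genes and the grey band holds changes under 2-fold. Interleukins and growth factors lie farthest to the right (median 4.40) and G2/M genes farthest to the left (median -4.08).

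Basal layer and hemidesmosome genes rose in 8 of 18 tested and fell in 3. The laminin chains LAMB3 and LAMA3, of the protein that anchors the epidermis to its basement membrane, ranked 15 and 85 among all genes by CPM per kilobase of exon in HaCaT_sh+cyto. LAMA3 had 5658, 5209 and 5216 CPM in HaCaT_sh+cyto, against 212, 208 and 205 CPM in HaCaT_ctrl (log2FC 4.69, SE 0.0638, adjusted p = 1.66e-11). LAMB3 had 5824, 5610 and 6126 CPM in HaCaT_sh+cyto, against 1066, 1077 and 994 CPM in HaCaT_ctrl (log2FC 2.49, SE 0.0599, adjusted p = 2.35e-10), and neither chain had groups that overlapped. The integrin chain genes of the list that rose were ITGA2 (log2FC 2.10), ITGB1 (log2FC 1.21) and ITGA3 (log2FC 1.004), whereas ITGA6, ITGB4 and COL17A1, the hemidesmosome receptors, were not called (log2FC 0.22, -0.23 and 0.32). KRT5, TP63 and DLK2, a relative of the Notch modulator DLK1, fell. DLK2 had 2.37, 2.55 and 2.61 CPM in HaCaT_sh+cyto, against 32.3, 35.6 and 29.3 CPM in HaCaT_ctrl (log2FC -3.68, SE 0.124, adjusted p = 1.97e-09).

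Stress keratins and keratins of simple epithelia rose in 7 of 10 and fell in none. KRT16, a keratin of wounded and psoriatic skin, had 55.4, 52.2 and 58.2 CPM in HaCaT_sh+cyto, against 7.22, 6.72 and 6.14 CPM in HaCaT_ctrl (log2FC 3.06, SE 0.0828, adjusted p = 4.72e-10). KRT16 averaged 4.28 CPM in HaCaT_ctrl+cyto, below its level in HaCaT_ctrl, and 16.6 CPM in HaCaT_sh. KRT6A, its usual partner, had 1690, 1724 and 1523 CPM in HaCaT_sh+cyto, against 537, 512 and 528 CPM in HaCaT_ctrl (log2FC 1.65, SE 0.0634, adjusted p = 4.79e-09). KRT6B, near-identical to KRT6A, had 7.82, 7.4 and 7.19 CPM in HaCaT_sh+cyto, against 0, 0.0575 and 0.0534 CPM in HaCaT_ctrl. KRT8 and KRT18, the keratins of simple epithelia, had 2017 ± 114 CPM in HaCaT_sh+cyto and 585 ± 26.5 CPM in HaCaT_ctrl for KRT8 and 942 ± 75.2 CPM in HaCaT_sh+cyto and 136 ± 2.85 CPM in HaCaT_ctrl for KRT18 (SD, n = 3 each). Their groups did not overlap, and the log2FC values were 1.79 and 2.80. KRT17 rose (log2FC 1.89).

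Differentiation genes went both ways. Of 29 tested genes 12 rose, 9 fell and 8 were not called, and 18 of the list did not pass the filter. KRT4, a keratin of wet stratified epithelia, had 1.22, 1.81 and 1.76 CPM in HaCaT_sh+cyto, against 1973, 1957 and 1918 CPM in HaCaT_ctrl (log2FC -10.26, SE 0.102, adjusted p = 6.51e-12), and 1.64 CPM in HaCaT_ctrl+cyto and 1764 CPM in HaCaT_sh. KRT13, its partner, had 543, 462 and 871 CPM in HaCaT_sh+cyto, against 5011, 5239 and 4777 CPM in HaCaT_ctrl (log2FC -2.997, SE 0.196, adjusted p = 2.08e-07). KRT10, the partner of KRT1, fell (log2FC -1.36). IVL, an early protein of the cornified envelope, had 15.7, 14.6 and 16.1 CPM in HaCaT_sh+cyto, against 486, 477 and 418 CPM in HaCaT_ctrl (log2FC -4.89, SE 0.0803, adjusted p = 2.85e-11). In contrast SPRR2A had 255, 256 and 276 CPM in HaCaT_sh+cyto, against 3.25, 2.81 and 2.67 CPM in HaCaT_ctrl (log2FC 6.50, SE 0.082, adjusted p = 1.30e-11) and SPRR2E had 168, 174 and 194 CPM in HaCaT_sh+cyto, against 0.13, 0.172 and 0.32 CPM in HaCaT_ctrl (log2FC 9.66, SE 0.146, adjusted p = 2.47e-11). SPRR2D and SPRR2G rose (log2FC 8.82 and 7.84), and as the SPRR2 genes are close copies of each other, how the reads divide among them is uncertain. SPRR3 fell, with 7.24, 7.97 and 6.35 CPM in HaCaT_sh+cyto, against 15.6, 14.7 and 14.4 CPM in HaCaT_ctrl, a log2FC of -1.04 that was -0.96 without HaCaT_sh+cyto replicate 3. TGM2 had 61.9, 52.5 and 61.8 CPM in HaCaT_sh+cyto, against 1.11, 1.49 and 1.6 CPM in HaCaT_ctrl (log2FC 5.38, SE 0.127, adjusted p = 2.13e-10), while TGM5 fell (log2FC -3.49) and TGM1, the main crosslinking enzyme of the envelope, was not called (log2FC 0.09). CDSN, a protein that holds corneocytes together, and SBSN rose (log2FC 7.89 and 8.74), and CASP14, the protease of cornification, fell (log2FC -4.67).

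Kallikreins, the proteases that cut the bonds between corneocytes, mostly rose, and SPINK5, an inhibitor of KLK5 and KLK7, fell. KLK5 had 1685, 1571 and 1940 CPM in HaCaT_sh+cyto, against 152, 127 and 148 CPM in HaCaT_ctrl (log2FC 3.61, SE 0.0951, adjusted p = 4.08e-10), KLK10 had 1290, 1153 and 1495 CPM in HaCaT_sh+cyto, against 117, 111 and 121 CPM in HaCaT_ctrl, and KLK6 had 109, 102 and 112 CPM in HaCaT_sh+cyto, against 3.84, 3.96 and 4.0 CPM in HaCaT_ctrl. All stimulated libraries of these genes were above all control ones, and KLK10 and KLK6 had log2FC values of 3.50 and 4.78. KLK7 and KLK8 rose (log2FC 2.73 and 2.25), as did KLK14 (log2FC 3.46). KLK11 fell (log2FC -1.71). SPINK5 had 0.663 ± 0.28 CPM in HaCaT_sh+cyto and 13 ± 1.16 CPM in HaCaT_ctrl (SD, n = 3 each). The counts were 6 higher and 2 lower of 9 tested, and they held without any 1 library.

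Desmosome genes were mostly not called, 9 of 12, with 2 higher and 1 lower. DSG3, a cadherin of lower layers, had 1825, 1635 and 1825 CPM in HaCaT_sh+cyto, against 536, 552 and 533 CPM in HaCaT_ctrl (log2FC 1.71, SE 0.0571, adjusted p = 1.88e-09), and DSP had 1965, 1873 and 2089 CPM in HaCaT_sh+cyto, against 721, 690.5 and 713 CPM in HaCaT_ctrl (log2FC 1.49, SE 0.0546, adjusted p = 3.58e-09). PKP3 had a log2FC of -1.03, and -1.0 and -0.91 without HaCaT_ctrl replicate 1 and HaCaT_sh+cyto replicate 3, both under 2-fold. Without 1 library, 0 members (those 2 libraries) or 2 members (HaCaT_ctrl replicate 3, HaCaT_sh+cyto replicates 1 and 2) fell. Tight junction genes rose in 6 and fell in 3 of 18. CLDN4 had 2352, 2008 and 2741 CPM in HaCaT_sh+cyto, against 239, 233 and 238 CPM in HaCaT_ctrl (log2FC 3.33, SE 0.1, adjusted p = 9.10e-10), and the membrane protein OCLN had 229.7, 200.4 and 229 CPM in HaCaT_sh+cyto, against 43.3, 42.5 and 41.5 CPM in HaCaT_ctrl (log2FC 2.38, SE 0.0637, adjusted p = 4.45e-10). CLDN8 fell, with 0.192, 0.247 and 0.282 CPM in HaCaT_sh+cyto, against 52.8, 61.4 and 54.2 CPM in HaCaT_ctrl (log2FC -7.83, SE 0.163, adjusted p = 1.09e-10). The scaffold gene TJP1 rose (log2FC 1.26).

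Of 24 epidermal transcription factors 8 rose and 3 fell. PRDM1, a repressor that acts in terminal differentiation, had 134, 132 and 102 CPM in HaCaT_sh+cyto, against 1.04, 1.55 and 0.587 CPM in HaCaT_ctrl (log2FC 6.87, SE 0.204, adjusted p = 8.46e-10). KLF4, needed for the skin barrier, had 116, 116 and 107 CPM in HaCaT_sh+cyto, against 16.7, 18.4 and 15.8 CPM in HaCaT_ctrl (log2FC 2.74, SE 0.0746, adjusted p = 4.83e-10). CEBPB, which works with NF-kB on IL-17 targets, had 269, 254 and 196 CPM in HaCaT_sh+cyto, against 51.7, 43.1 and 44.7 CPM in HaCaT_ctrl (log2FC 2.38, SE 0.121, adjusted p = 3.27e-08). The groups of all of them were separate. SOX9 and OVOL1 rose (log2FC 2.41 and 1.55), and POU2F3, OVOL2 and TFAP2C fell (log2FC -4.66, -1.83 and -1.17).

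Genes of the G2/M phase, the spindle and cytokinesis fell almost without exception, 38 of 40 with a median log2FC of -4.08, and the count did not change without any 1 library. CDC25B and BUB3 were not called. CDK1, the kinase that drives mitosis, had 2.63, 2.96 and 3.03 CPM in HaCaT_sh+cyto, against 97.9, 90.8 and 104 CPM in HaCaT_ctrl (log2FC -5.08, SE 0.0957, adjusted p = 6.96e-11). CCNB2, one of its cyclins, had 2.95, 3.37 and 2.96 CPM in HaCaT_sh+cyto, against 88.8, 80.1 and 88.6 CPM in HaCaT_ctrl (log2FC -4.79, SE 0.0923, adjusted p = 7.47e-11), and the kinase PLK1 had 3.52, 4.6 and 3.67 CPM in HaCaT_sh+cyto, against 101, 90.4 and 102 CPM in HaCaT_ctrl (log2FC -4.64, SE 0.102, adjusted p = 1.51e-10). No stimulated library came near a control one. KIF20A, a motor protein of the spindle midzone, had 0.384, 0.575 and 0.141 CPM in HaCaT_sh+cyto, against 106, 96.4 and 112 CPM in HaCaT_ctrl (log2FC -8.15, SE 0.171, adjusted p = 1.15e-10). ANLN, a scaffold of the contractile ring, had 9.48, 10.03 and 9.94 CPM in HaCaT_sh+cyto, against 309.5, 268 and 328 CPM in HaCaT_ctrl (log2FC -4.94, SE 0.0946, adjusted p = 7.33e-11). The proliferation marker MKI67, topoisomerase TOP2A and the transcription factor FOXM1, which activates many of these genes, fell (log2FC -4.55, -5.33 and -4.21). CDK1 averaged 6.17 CPM in HaCaT_ctrl+cyto and 121 CPM in HaCaT_sh, and PLK1 4.3 and 102 CPM, so both were low in the cytokine-treated groups of both lines.

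DNA replication genes fell in 21 of 39 and rose in none, with a median log2FC of -1.07. TK1 and TYMS, which make thymidine nucleotides, had 8.2, 7.81 and 10.3 CPM in HaCaT_sh+cyto, against 112, 92.8 and 109 CPM in HaCaT_ctrl for TK1 and 4.74, 4.6 and 3.46 CPM in HaCaT_sh+cyto, against 25.8, 24.8 and 27.7 CPM in HaCaT_ctrl for TYMS. RRM1, a subunit of ribonucleotide reductase, had 36.3, 39 and 41.2 CPM in HaCaT_sh+cyto, against 178, 156 and 176 CPM in HaCaT_ctrl (log2FC -2.12, SE 0.0725, adjusted p = 2.18e-09). None of these overlapped, and TK1 and TYMS had log2FC values of -3.57 and -2.60. LIG1 fell (log2FC -2.35), and of the helicase genes MCM3 fell (log2FC -1.07) while MCM2, MCM4, MCM5, MCM6 and MCM7 were not called. In promoters of 2196 genes that fell, the core letters of the cell cycle homology region (TTTGAA, either strand) were found in 13.3% and the E2F letters (TTTGGCG) in 2.96%, against 9.6% and 2.95% of 10303 tested promoters and 15.4% and 1.92% of all 27305.

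Among G1 regulators 4 of 18 rose and 6 fell. CDKN1A, the p21 inhibitor of cyclin-dependent kinases, had 519.5, 515 and 506 CPM in HaCaT_sh+cyto, against 67.7, 66.7 and 66.6 CPM in HaCaT_ctrl (log2FC 2.95, SE 0.05, adjusted p = 3.59e-11). CDKN2C, the p18 inhibitor, had 0.0641, 0 and 0 CPM in HaCaT_sh+cyto, against 19.2, 16.7 and 20.7 CPM in HaCaT_ctrl and was thus at or near 0 in the stimulated cells. Its log2FC was -9.20, and -11.2 without HaCaT_sh+cyto replicate 1, the only one of its group with a count. CCND1 and CCND2, cyclins that open G1, rose, CCND1 with 1830, 1675 and 1806 CPM in HaCaT_sh+cyto, against 611, 589.9 and 642 CPM in HaCaT_ctrl (log2FC 1.53, SE 0.0569, adjusted p = 3.80e-09) and CCND2 with a log2FC of 1.25. RBL2, a pocket protein of quiescent cells, fell (log2FC -1.65).

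Of 31 cell death genes 9 rose, 5 fell and 17 were not called, against 15.3% higher and 22.4% lower over all genes. The death receptor gene TNFRSF10B had 174, 171 and 175 CPM in HaCaT_sh+cyto, against 48.8, 51 and 49 CPM in HaCaT_ctrl (log2FC 1.81, SE 0.0499, adjusted p = 5.24e-10). The decoy receptor gene TNFRSF10D had 10.8, 10.3 and 10.6 CPM in HaCaT_sh+cyto, against 0.13, 0 and 0.0534 CPM in HaCaT_ctrl, and 0.0203 CPM in HaCaT_ctrl+cyto. Its log2FC was 7.32, and 8.21 without HaCaT_ctrl replicate 1. PMAIP1, a killer of the BCL2 family, had 173, 164 and 182 CPM in HaCaT_sh+cyto, against 31.8, 29.9 and 31.7 CPM in HaCaT_ctrl (log2FC 2.48, SE 0.0587, adjusted p = 2.14e-10). The protective BCL2L1 rose (log2FC 1.16) and the killer BMF fell (log2FC -3.28).

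**Figure D4:**
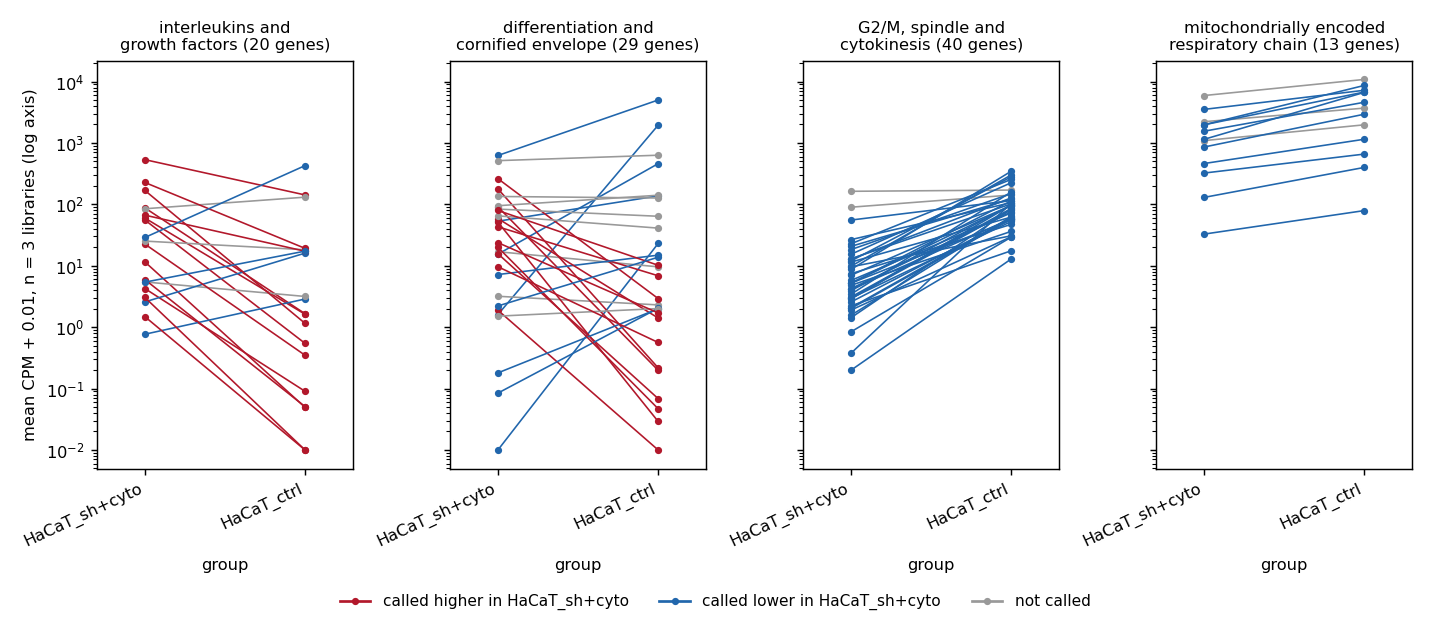
Mean CPM plus 0.01 (vertical, log axis, 3 libraries a group) of each tested gene of 4 lists in HaCaT_sh+cyto (left of each panel) and HaCaT_ctrl (right), joined by a line. Red lines were called higher in HaCaT_sh+cyto, blue lines lower and grey lines not called. In the G2/M panel 38 of 40 lines are blue, the differentiation panel holds lines of both colours, and all 13 mitochondrially encoded genes are lower in HaCaT_sh+cyto.

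The EGF receptor ligands TGFA, HBEGF, AREG and EREG rose, EPGN fell (log2FC -1.22) and BTC was not called. TGFA had 293, 286 and 274 CPM in HaCaT_sh+cyto, against 25.6, 26.8 and 27.7 CPM in HaCaT_ctrl (log2FC 3.42, SE 0.0603, adjusted p = 5.04e-11). HBEGF had 124, 142 and 91.2 CPM in HaCaT_sh+cyto, against 6.83, 5.92 and 6.83 CPM in HaCaT_ctrl (log2FC 4.20, SE 0.175, adjusted p = 8.57e-09), and AREG and EREG had log2FC values of 4.68 and 4.99. ERRFI1, which inhibits the receptor, had 139, 138 and 163 CPM in HaCaT_sh+cyto, against 7.87, 7.64 and 9.18 CPM in HaCaT_ctrl (log2FC 4.16, SE 0.0954, adjusted p = 1.79e-10). EGFR itself rose (log2FC 1.04), ERBB2 and ERBB4 fell (log2FC -1.07 and -5.96), and the neuregulins NRG2 and NRG4 fell (log2FC -5.01 and -6.51). The counts were 6 higher and 5 lower of 15.

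Targets and feedback regulators of the ERK pathway rose in 18 of 25 and fell in 2, with a median log2FC of 1.85. PHLDA1 had 1161, 1181 and 1009 CPM in HaCaT_sh+cyto, against 74.7, 64.6 and 78.6 CPM in HaCaT_ctrl (log2FC 3.95, SE 0.0957, adjusted p = 2.53e-10). MYC had 510.4, 482 and 541 CPM in HaCaT_sh+cyto, against 102, 105 and 103 CPM in HaCaT_ctrl (log2FC 2.31, SE 0.0556, adjusted p = 2.35e-10). The phosphatase gene DUSP5, which switches off ERK in the nucleus, had 252, 221 and 306 CPM in HaCaT_sh+cyto, against 27.6, 27.4 and 28.5 CPM in HaCaT_ctrl (log2FC 3.23, SE 0.107, adjusted p = 1.82e-09). All were separate between groups. IER3, DUSP4, DUSP6, SPRY4, ETV4 and ETV5 rose (log2FC 3.12, 2.65, 1.21, 4.06, 2.47 and 3.90). SPRY1 and EPHA4 fell (log2FC -2.69 and -2.31), and EGR1 was not called.

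AP-1 factors rose in 6 of 12. FOSL1 had 417, 436 and 359 CPM in HaCaT_sh+cyto, against 10.3, 8.73 and 9.82 CPM in HaCaT_ctrl (log2FC 5.40, SE 0.103, adjusted p = 7.33e-11), and 575 CPM in HaCaT_ctrl+cyto against 6.89 CPM in HaCaT_sh. BATF2, an interferon-induced member, had 41.9, 38.1 and 47.2 CPM in HaCaT_sh+cyto, against 0.325, 0.287 and 0.16 CPM in HaCaT_ctrl (log2FC 7.36, SE 0.182, adjusted p = 2.86e-10). ATF3, a stress-induced factor, had 95.7, 96.5 and 103 CPM in HaCaT_sh+cyto, against 14.6, 14 and 14.9 CPM in HaCaT_ctrl (log2FC 2.77, SE 0.0618, adjusted p = 1.61e-10). The 3 genes had separate groups. MAFF and MAFG rose (log2FC 3.31 and 1.84), as did JUN (log2FC 1.54). FOS fell (log2FC -1.81), and FOSB, FOSL2, JUNB and JUND were not called.

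Of 29 tested genes of the IQGAP family and its small GTPase partners 8 rose and 6 fell, with IQGAP3 itself not counted. CDC42 and RAC1, the GTPases that IQGAP proteins bind, were not called (log2FC -0.26 and -0.43). The CDC42 effectors CDC42EP1 and CDC42EP2 rose (log2FC 2.18 and 2.27). RND3, an atypical small GTPase, had 1193, 1185 and 1211 CPM in HaCaT_sh+cyto, against 116, 115 and 129 CPM in HaCaT_ctrl (log2FC 3.32, SE 0.0627, adjusted p = 6.96e-11). ARHGDIB, an inhibitor that holds small GTPases in the cytosol, had 1.67, 1.48 and 2.04 CPM in HaCaT_sh+cyto, against 169, 165 and 179.6 CPM in HaCaT_ctrl (log2FC -6.61, SE 0.096, adjusted p = 2.22e-11). Its level was 97.5-fold lower, and it averaged 2.37 CPM in HaCaT_ctrl+cyto and 148 CPM in HaCaT_sh.

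Integrins rose in 6 and fell in 4 of 15. ITGA5, the fibronectin receptor chain, had 116, 111 and 104 CPM in HaCaT_sh+cyto, against 6.25, 5.05 and 6.14 CPM in HaCaT_ctrl (log2FC 4.25, SE 0.09, adjusted p = 1.17e-10). Fibronectin itself, FN1, rose (log2FC 4.96). ITGB6, the chain of the integrin that releases latent TGF-beta, had 17.7, 18.2 and 18.7 CPM in HaCaT_sh+cyto, against 102, 100.3 and 100.2 CPM in HaCaT_ctrl (log2FC -2.47, SE 0.0571, adjusted p = 1.86e-10). ITGB8 rose (log2FC 2.23).

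Matrix protein genes fell in 15 of 35 and rose in 6. SPARC, a collagen-binding protein, had 1.73, 1.81 and 2.26 CPM in HaCaT_sh+cyto, against 175, 181 and 181 CPM in HaCaT_ctrl (log2FC -6.52, SE 0.087, adjusted p = 1.66e-11). MATN2 and LAMB2, a filament former of the matrix and a laminin chain, had 11.2, 10.9 and 14.2 CPM in HaCaT_sh+cyto, against 177, 170.0 and 166 CPM in HaCaT_ctrl for MATN2 and 34.1, 34.8 and 39.1 CPM in HaCaT_sh+cyto, against 254, 262 and 233 CPM in HaCaT_ctrl for LAMB2. No group of these genes overlapped with the other, and MATN2 and LAMB2 had log2FC values of -3.81 and -2.79. The collagen IV gene COL4A5 fell (log2FC -2.75) and the small proteoglycan LUM, like DCN at 0 in HaCaT_sh+cyto, was at least 70.0-fold lower. TNC and ECM1 rose (log2FC 1.72 and 1.82).

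Matrix proteases and the plasminogen system went both ways, 10 higher and 9 lower of 25. PLAUR, the receptor of urokinase, had 385, 358 and 468 CPM in HaCaT_sh+cyto, against 10.2, 8.39 and 9.77 CPM in HaCaT_ctrl (log2FC 5.43, SE 0.118, adjusted p = 1.46e-10). PLAT, the tissue-type plasminogen activator, had 1.6, 1.4 and 1.9 CPM in HaCaT_sh+cyto, against 119.7, 131 and 119.5 CPM in HaCaT_ctrl (log2FC -6.22, SE 0.1, adjusted p = 2.85e-11). MMP13, a collagenase, had 0.0641, 0 and 0.212 CPM in HaCaT_sh+cyto, against 90.4, 95 and 84.7 CPM in HaCaT_ctrl, so the stimulated cells had almost none. Its log2FC was -9.76, and -11.0 without HaCaT_sh+cyto replicate 3. ADAM8 rose (log2FC 2.66), as did MMP1 and MMP9 (log2FC 3.87 and 6.04). MMP2, MMP7 and MMP12 fell (log2FC -3.42, -5.34 and -6.63).

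Genes of the stress response to amino acid shortage and misfolded protein mostly rose. In the list of ATF4 targets and the unfolded protein response 17 of 24 rose and none fell, with a median log2FC of 1.64. CHAC1, which degrades glutathione, had 216, 200.5 and 171 CPM in HaCaT_sh+cyto, against 1.3, 0.919 and 1.23 CPM in HaCaT_ctrl (log2FC 7.42, SE 0.144, adjusted p = 7.47e-11). DDIT3, the CHOP factor, had 127, 139.6 and 115 CPM in HaCaT_sh+cyto, against 12.1, 11.3 and 10.7 CPM in HaCaT_ctrl (log2FC 3.49, SE 0.0926, adjusted p = 4.23e-10). HSPA5, the main chaperone of the endoplasmic reticulum, had 2194, 2315 and 2190 CPM in HaCaT_sh+cyto, against 580.4, 560.4 and 577 CPM in HaCaT_ctrl (log2FC 1.97, SE 0.0539, adjusted p = 4.94e-10). In these genes the lowest stimulated library was above the highest control one. PPP1R15A and ERN1 rose (log2FC 3.17 and 3.03), and ASNS and PSAT1, enzymes of amino acid synthesis, had log2FC values of 4.63 and 4.42. NRF2 targets and oxidative stress genes rose in 9 and fell in 3 of 25. TXNRD1, a thioredoxin reductase, had 1053, 1136 and 788 CPM in HaCaT_sh+cyto, against 89.8, 84.7 and 98.8 CPM in HaCaT_ctrl (log2FC 3.45, SE 0.135, adjusted p = 5.49e-09). GSTM3, a glutathione transferase, rose (log2FC 7.11). CAT, which breaks down hydrogen peroxide, had 9.29, 8.38 and 7.19 CPM in HaCaT_sh+cyto, against 146, 149.5 and 144 CPM in HaCaT_ctrl (log2FC -4.13, SE 0.0834, adjusted p = 9.52e-11), and GPX2 fell (log2FC -2.97).

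Tryptophan and NAD genes included one of the most expressed genes of HaCaT_sh+cyto, WARS1, at 1345 CPM per kilobase of exon (rank 12 among all genes) against 34.5 CPM per kilobase (rank 1013) in HaCaT_ctrl. WARS1, the tryptophanyl-tRNA synthetase that IFNγ induces, had 8238, 7948 and 9457 CPM in HaCaT_sh+cyto, against 219.9, 221 and 216 CPM in HaCaT_ctrl (log2FC 5.29, SE 0.0806, adjusted p = 2.47e-11). IDO1, which breaks down tryptophan, had 593, 511 and 863 CPM in HaCaT_sh+cyto, against 30.6, 39.8 and 29.9 CPM in HaCaT_ctrl (log2FC 4.30, SE 0.196, adjusted p = 1.55e-08). Both were separate between groups, with replicate 3 highest for both. NAMPT, which makes NAD from nicotinamide, rose (log2FC 1.72), as did NAPRT (log2FC 1.09). PARP1, which consumes NAD at DNA breaks, had 43.6, 43.6 and 36.1 CPM in HaCaT_sh+cyto, against 217, 201 and 215 CPM in HaCaT_ctrl (log2FC -2.35, SE 0.0802, adjusted p = 2.17e-09). The list had 5 higher and 3 lower of 10.

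Prostanoid genes fell in 7 of 11, but the inducible enzyme rose. PTGS2, the inducible cyclooxygenase, had 212, 168 and 379 CPM in HaCaT_sh+cyto, against 18.5, 16.3 and 18.6 CPM in HaCaT_ctrl (log2FC 3.83, SE 0.272, adjusted p = 3.85e-07). HPGD, which degrades prostaglandins, had 2.82, 2.79 and 2.26 CPM in HaCaT_sh+cyto, against 71.6, 75.2 and 73.9 CPM in HaCaT_ctrl (log2FC -4.80, SE 0.0925, adjusted p = 7.47e-11). PLA2G4A, which releases arachidonic acid, fell (log2FC -2.44). ALOX5, which makes leukotrienes, had 7.95, 8.79 and 21.2 CPM in HaCaT_sh+cyto, against 67.9, 70.0 and 61.4 CPM in HaCaT_ctrl, a log2FC of -2.38 that was -2.99 without HaCaT_sh+cyto replicate 3. PTGIS had 0.0641, 0 and 0 CPM in HaCaT_sh+cyto, against 1.82, 2.41 and 2.19 CPM in HaCaT_ctrl, with a log2FC of -6.08, and -8.07 without HaCaT_sh+cyto replicate 1.

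Glycolysis and hypoxia genes rose in 8 and fell in 1 of 28, and most glycolytic enzymes were not called. VEGFA, the angiogenic factor, had 559, 552 and 486 CPM in HaCaT_sh+cyto, against 35.9, 37.5 and 34 CPM in HaCaT_ctrl (log2FC 3.90, SE 0.0778, adjusted p = 8.92e-11). HK2, the inducible hexokinase, had 337, 318 and 292 CPM in HaCaT_sh+cyto, against 33, 34 and 34.7 CPM in HaCaT_ctrl (log2FC 3.23, SE 0.0696, adjusted p = 1.36e-10). Their groups did not overlap. NDRG1 rose (log2FC 2.90), as did HIF1A (log2FC 1.12), while PFKFB3 fell (log2FC -1.91), and without HaCaT_ctrl replicate 2 or HaCaT_sh+cyto replicate 3 there were 2 members that fell.

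Of 25 cholesterol genes 4 rose, 5 fell and 16 were not called, shares close to the 15.3% and 22.4% over all genes. The log2FC values ran from -2.24 to 2.31. Among those that fell were the synthesis genes SC5D, PMVK and ACAT2 (log2FC -1.23, -1.32 and -2.24). The list sum was not lower in HaCaT_sh+cyto, at 2020 to 2850 CPM, against 1840 to 2040 CPM in HaCaT_ctrl. Of 31 fatty acid genes 8 rose and 5 fell, with log2FC values from -3.53 to 2.59. They summed to 4110 to 5480 CPM in HaCaT_sh+cyto and 3910 to 4220 CPM in HaCaT_ctrl. The acyl-CoA dehydrogenases of mitochondrial oxidation ACADM and ACADVL fell (log2FC -2.23 and -1.10), as did ACACB (log2FC -3.53) and FADS2 (log2FC -1.39), and the nuclear receptor PPARD rose, with 149, 142 and 152 CPM in HaCaT_sh+cyto, against 38.4, 37.3 and 38.8 CPM in HaCaT_ctrl (log2FC 1.96, SE 0.0527, adjusted p = 4.53e-10).

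Of 11 tested metallothionein and zinc transport genes 4 rose, 5 fell and 2 were not called (over all genes 15.3% rose and 22.4% fell). MT2A, the most widely expressed metallothionein, had 140.2, 154 and 143 CPM in HaCaT_sh+cyto, against 328, 329 and 328 CPM in HaCaT_ctrl (log2FC -1.17, SE 0.0544, adjusted p = 1.79e-08), and MT1E, whose reads can be shared with its close copies, fell (log2FC -1.52). MT1F and MT1X fell (log2FC -1.49 and -1.92), as did the zinc transporter gene SLC39A10 (log2FC -1.47). The zinc importer gene SLC39A4 had 27.9, 30.8 and 27.7 CPM in HaCaT_sh+cyto, against 4.42, 4.37 and 3.68 CPM in HaCaT_ctrl (log2FC 2.80, SE 0.109, adjusted p = 5.23e-09), and the exporter SLC30A1 and the zinc-sensing factor MTF1 rose (log2FC 1.63 and 1.49). SLC39A14 rose (log2FC 1.55), and SLC39A6 and SLC39A8 were not called.

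The mitochondrially encoded genes of the respiratory chain were lower in all 13, and 10 were called, with a median log2FC of -1.31. MT-CYB had 1133, 1125 and 1184 CPM in HaCaT_sh+cyto, against 6362, 7148 and 6509 CPM in HaCaT_ctrl (log2FC -2.53, SE 0.0639, adjusted p = 3.20e-10). MT-CO2 had 1927, 1814 and 2196 CPM in HaCaT_sh+cyto, against 8350, 8986 and 8626 CPM in HaCaT_ctrl (log2FC -2.12, SE 0.0749, adjusted p = 2.75e-09). MT-ND2, MT-CO3 and MT-ATP6 fell (log2FC -1.77, -1.76 and -1.56). MT-CO1, with 5633, 5708 and 6429 CPM in HaCaT_sh+cyto, against 10410, 11460 and 10670 CPM in HaCaT_ctrl, was under 2-fold at -0.87, and called at -1.15 when libraries were scaled by size alone. MT-ND4 had a log2FC of -1.03, which was -0.98, -0.97 and -0.96 without HaCaT_ctrl replicate 2 and HaCaT_sh+cyto replicates 1 and 2. As a share of all counts, mitochondrially encoded genes held 1.84% to 2.07% in HaCaT_sh+cyto and 5.86% to 6.47% in HaCaT_ctrl. The part of this difference in the other results was not tested.

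In the TGF-beta, BMP and activin list 7 of 28 rose and 7 fell. The ID genes, classical targets of BMP signalling, fell together. ID3 had 4.42, 3.37 and 5.99 CPM in HaCaT_sh+cyto, against 340.0, 341 and 313 CPM in HaCaT_ctrl (log2FC -6.15, SE 0.126, adjusted p = 1.00e-10), ID2 had 1.54, 2.14 and 2.12 CPM in HaCaT_sh+cyto, against 45, 45.1 and 46 CPM in HaCaT_ctrl (log2FC -4.56, SE 0.11, adjusted p = 2.48e-10) and ID1 had 51.5, 50.2 and 65.4 CPM in HaCaT_sh+cyto, against 618, 622 and 576 CPM in HaCaT_ctrl (log2FC -3.44, SE 0.0942, adjusted p = 5.05e-10). INHBA, the chain of activin A, had 332, 328 and 256 CPM in HaCaT_sh+cyto, against 4.16, 3.16 and 4.64 CPM in HaCaT_ctrl (log2FC 6.26, SE 0.152, adjusted p = 2.61e-10), and its antagonist FST rose (log2FC 3.81). GDF15, a stress-induced family member, had 66, 59.1 and 75.5 CPM in HaCaT_sh+cyto, against 1.76, 2.01 and 2.51 CPM in HaCaT_ctrl (log2FC 4.99, SE 0.135, adjusted p = 4.81e-10). Every gene named here had separate groups. BMP4 fell (log2FC -2.69) and BMP2 and BMP6 rose (log2FC 1.32 and 7.08).

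The Notch list had 4 higher and 9 lower of 20, with a median log2FC of -0.212. NOTCH3, a receptor of suprabasal cells, had 0.641, 0.575 and 0.353 CPM in HaCaT_sh+cyto, against 19.1, 20.3 and 20.4 CPM in HaCaT_ctrl (log2FC -5.22, SE 0.173, adjusted p = 1.77e-09). LFNG, which modifies Notch receptors, had 0.833, 1.07 and 0.705 CPM in HaCaT_sh+cyto, against 30.9, 28.3 and 25.5 CPM in HaCaT_ctrl (log2FC -5.02, SE 0.162, adjusted p = 1.48e-09). Their stimulated libraries were all lower. The ligand JAG1 and the target genes NRARP and HES4 fell (log2FC -1.20, -1.93 and -1.50), as did HEY1 and HES5 (log2FC -2.67 and -2.34). NOTCH2 and the ligand DLL4 rose (log2FC 1.42 and 8.39), and NOTCH1, HES1 and RBPJ were not called.

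Per kilobase of exon, FTH1, a subunit of the iron store ferritin, ranked first of all genes in HaCaT_sh+cyto, at 6075 CPM per kb, against 2434 CPM per kb (rank 9) in HaCaT_ctrl. LCN2 ranked second, at 4131 CPM per kb in HaCaT_sh+cyto and 253 CPM per kb (rank 91) in HaCaT_ctrl. FTH1 had 12280, 12540 and 11700 CPM in HaCaT_sh+cyto, against 4942, 5044 and 4650 CPM in HaCaT_ctrl (log2FC 1.33, SE 0.0614, adjusted p = 1.69e-08). ANXA2, a membrane-binding protein, rose (log2FC 1.34), and the translation factor EEF1A1 was not called (log2FC -0.09). IGFBP3, which binds insulin-like growth factors, had 7798, 6659 and 10910 CPM in HaCaT_sh+cyto, against 4091, 4463 and 3855 CPM in HaCaT_ctrl. It was called at a log2FC of 1.04 but was under 2-fold without HaCaT_ctrl replicate 3 (log2FC 0.99) and without HaCaT_sh+cyto replicate 3 (log2FC 0.81).

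Among genes that are not protein-coding, the largest decreases included H19, an imprinted long non-coding RNA, with 0, 0 and 0.0705 CPM in HaCaT_sh+cyto, against 46.9, 44.4 and 42.3 CPM in HaCaT_ctrl. Its log2FC was -10.44, and -12.46 without HaCaT_sh+cyto replicate 3, the only one of its group with a count. H19 averaged 0.702 CPM in HaCaT_sh and 0.0632 CPM in HaCaT_ctrl+cyto, so it was high only in HaCaT_ctrl among the 4 groups. ENSG00000266976 had 0, 0 and 0.0705 CPM in HaCaT_sh+cyto, against 35.9, 38.4 and 33.1 CPM in HaCaT_ctrl, with a log2FC of -10.13, and -12.15 without the same library. LINC02518 had no count in HaCaT_sh+cyto and 35.6, 42.2 and 34.6 CPM in HaCaT_ctrl, at least 524-fold lower, and COLCA1 fell, with 0.128, 0 and 0.141 CPM in HaCaT_sh+cyto, against 26.8, 36 and 28.6 CPM in HaCaT_ctrl. Among the increases RPLP0P2, a pseudogene of a ribosomal protein whose reads can be shared with its parent, had 180.2, 216 and 111 CPM in HaCaT_sh+cyto, against 0.52, 0.517 and 0.267 CPM in HaCaT_ctrl (log2FC 8.61, SE 0.375, adjusted p = 1.15e-08). LINC01619 had 22.6, 22.1 and 25.9 CPM in HaCaT_sh+cyto, against 0.0651, 0 and 0.107 CPM in HaCaT_ctrl, a log2FC of 8.48, and 9.25 without HaCaT_ctrl replicate 3. ENSG00000226025 had 4.29, 3.94 and 11.7 CPM in HaCaT_sh+cyto, against 0, 0 and 0.0534 CPM in HaCaT_ctrl. Its log2FC of 7.93 was 9.64 without HaCaT_ctrl replicate 3 and 7.25 without HaCaT_sh+cyto replicate 3.

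Some genes that differed between HaCaT_sh+cyto and HaCaT_ctrl had about the same level in HaCaT_ctrl+cyto as in HaCaT_ctrl, within 0.25 on the log2 scale. OASL, an antiviral protein, had 66.9, 64.6 and 104 CPM in HaCaT_sh+cyto, against 12.1, 14.2 and 13.3 CPM in HaCaT_ctrl (log2FC 2.58, SE 0.177, adjusted p = 3.03e-07), and 14.6 CPM in HaCaT_ctrl+cyto and 13 CPM in HaCaT_sh. RGL3, an exchange factor of Ral GTPases, had 7.24, 7.56 and 9.45 CPM in HaCaT_sh+cyto, against 0.195, 0.0575 and 0 CPM in HaCaT_ctrl, with 0.0624 CPM in HaCaT_ctrl+cyto and 15.3 CPM in HaCaT_sh. Its log2FC was 6.57, and 7.83 and 5.96 without HaCaT_ctrl replicates 1 and 3. SPDYE22P, a pseudogene of a family of close copies, had 5.57, 5.34 and 4.94 CPM in HaCaT_sh+cyto and none in HaCaT_ctrl, at least 90.9-fold higher, and AC124789.1 rose (log2FC 2.76). MYO5C, an unconventional myosin, had 0.897, 0.822 and 0.635 CPM in HaCaT_sh+cyto, against 16.8, 16.3 and 17.5 CPM in HaCaT_ctrl (log2FC -4.40, SE 0.157, adjusted p = 2.97e-09), with 15 CPM in HaCaT_ctrl+cyto and 0.765 CPM in HaCaT_sh. SLC4A3, an anion exchanger, C3orf14 and TMEM45B fell (log2FC -2.38, -1.70 and -1.57), and each was low in HaCaT_sh as well (1.31, 1.44 and 13.1 CPM). RGL3, SPDYE22P and AC124789.1 were high and MYO5C, SLC4A3, C3orf14 and TMEM45B low in both groups of the HaCaT_sh line, whereas OASL was high in HaCaT_sh+cyto alone.

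Whether the cytokine response itself differed between the lines was tested by the interaction term of a fit to the 12 libraries, with 356 of 13709 tested genes called (2.6%), 190 higher and 166 lower in the HaCaT_sh line. Genes called in this test and in the joint comparison with the smallest interaction p are given with their 4 group means. S100A7 averaged 5.21 CPM in HaCaT_sh+cyto, 0.818 CPM in HaCaT_ctrl+cyto, 15.8 CPM in HaCaT_sh and 39.6 CPM in HaCaT_ctrl, and the response in HaCaT_sh was higher by 3.98 on the log2 scale (SE 0.317, adjusted p = 4.16e-06). IVL averaged 15.4 CPM in HaCaT_sh+cyto, 5.0 CPM in HaCaT_ctrl+cyto, 239.9 CPM in HaCaT_sh and 460.5 CPM in HaCaT_ctrl, with an interaction of 2.57 on the log2 scale (SE 0.17, adjusted p = 8.64e-07). For both, the cytokines went with a fall in either line, deeper in the control line. SERPINB3 averaged 69.6 CPM in HaCaT_sh+cyto, 227 CPM in HaCaT_ctrl+cyto, 74.1 CPM in HaCaT_sh and 15.7 CPM in HaCaT_ctrl, with an interaction of -3.95 on the log2 scale (SE 0.163, adjusted p = 2.74e-09). Its stimulated level in the HaCaT_sh line was close to its unstimulated one. SPRR3 averaged 7.19 CPM in HaCaT_sh+cyto, 1.6 CPM in HaCaT_ctrl+cyto, 2.39 CPM in HaCaT_sh and 14.9 CPM in HaCaT_ctrl, with an interaction of 4.80 on the log2 scale (SE 0.271, adjusted p = 1.33e-07), since the response was upward in the HaCaT_sh line and downward in the control line. THBD, the thrombin receptor thrombomodulin, averaged 302 CPM in HaCaT_sh+cyto, 438 CPM in HaCaT_ctrl+cyto, 172 CPM in HaCaT_sh and 62 CPM in HaCaT_ctrl, with an interaction of -2.01 on the log2 scale (SE 0.145, adjusted p = 1.81e-06). CYP1B1, a cytochrome P450, averaged 24.9 CPM in HaCaT_sh+cyto, 81.8 CPM in HaCaT_ctrl+cyto, 217 CPM in HaCaT_sh and 151 CPM in HaCaT_ctrl, with an interaction of -2.24 on the log2 scale (SE 0.17, adjusted p = 2.72e-06), and was lowest in HaCaT_sh+cyto. CMYA5 averaged 2.52 CPM in HaCaT_sh+cyto, 4.66 CPM in HaCaT_ctrl+cyto, 0.173 CPM in HaCaT_sh and 9.71 CPM in HaCaT_ctrl, so that in HaCaT_sh it was near 0 without cytokines, and ITPRIP averaged 153 CPM in HaCaT_sh+cyto, 285 CPM in HaCaT_ctrl+cyto, 62 CPM in HaCaT_sh and 49.7 CPM in HaCaT_ctrl. S100A8 is given not for its rank by interaction p but because the study measured its RNA by qPCR. It averaged 2.22 CPM in HaCaT_sh+cyto, 0.7 CPM in HaCaT_ctrl+cyto, 1.89 CPM in HaCaT_sh and 7.29 CPM in HaCaT_ctrl. Its interaction was 3.60 on the log2 scale (SE 0.392, adjusted p = 4.11e-05).

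**Figure D5:**
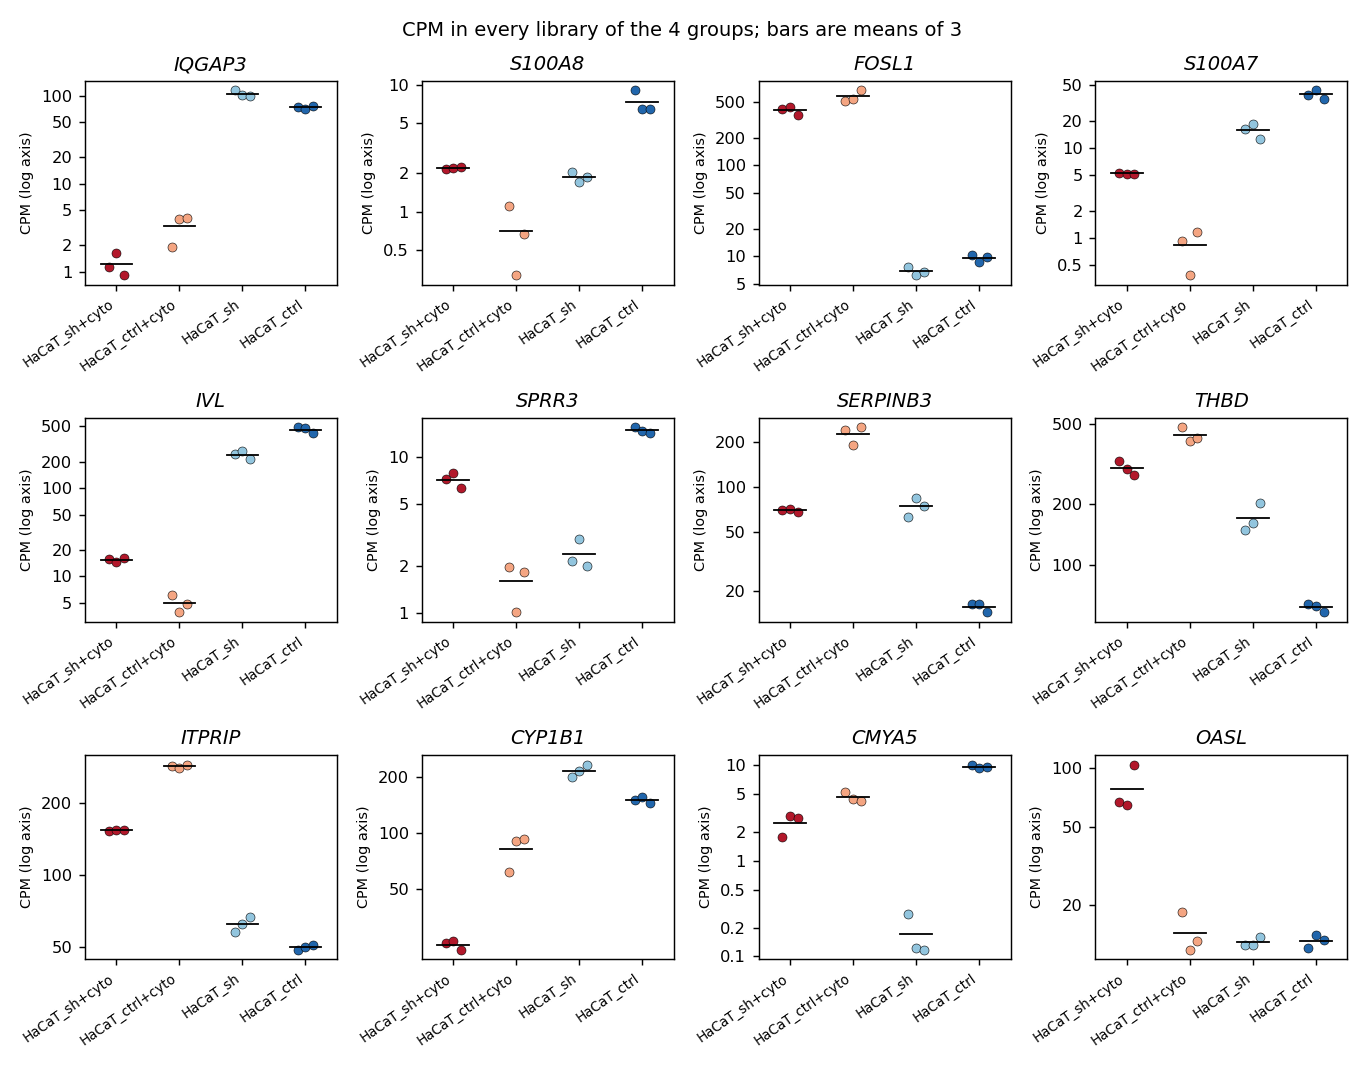
CPM in every library of HaCaT_sh+cyto, HaCaT_ctrl+cyto, HaCaT_sh and HaCaT_ctrl (left to right, log axes) for 12 genes, with bars at the means of 3 libraries. IQGAP3 is low in both cytokine-treated groups, SPRR3 and S100A7 are higher in HaCaT_sh+cyto than in HaCaT_ctrl+cyto, and OASL is high only in HaCaT_sh+cyto.

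The filter set the lower edge of what was tested. The named genes just inside it were MMEL1 and LAMTOR5-AS1, with a third-highest plain CPM of 1.0, and those just outside it KRT8P36 and OSMR-DT, with 0.996.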

How the data were processed

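RNA of 12 HaCaT libraries, 3 in each of 4 groups, was sequenced by the authors as paired reads. Per the study's methods, Cutadapt trimmed both read ends at quality 10, dropping reads under 25 bases, and STAR aligned the rest to hg19 with Gencode 19 genes. Not given in the sources used here were the counting program, its strand setting and how it treated multi-mapped reads. For each gene, read counts were deposited by the authors and used here, and a second deposited table of scaled values of expressed genes was not used.

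Gene names were matched by Ensembl identifier (55010 from Gencode, 73 from the study's supplement, 2287 without a name). Counts of 6 libraries were filtered (at least 1 CPM in 3), scaled by TMM and tested with edgeR 4.0.16 in R 4.3.3 by the quasi-likelihood test with Benjamini-Hochberg adjustment, without a replicate block. Standard errors are the absolute log2 fold change divided by the square root of F. The interaction was fitted over 12 libraries, for genes with at least 1 CPM in 6 of them and for all genes that passed the filter of the joint comparison. Printed CPM use the TMM factors of all 12 libraries. Depth was 13079055 to 17135245 counts, and intervals cover no more than the spread between libraries. The joint test was also run on simulated counts in which few genes changed, equally up and down. Such counts cannot check the scaling where many genes differ, as here. limma 3.58.1 and DESeq2 1.42.0 served as alternatives, beside other scalings, filters, thresholds and libraries left out. Promoter letters and figures were handled in Python 3.11.15.

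Named genes were IQGAP3 and its paralogs, S100A8 and FOSL1, the 10 largest increases and decreases of protein-coding genes, the called members with the smallest p in each list (at most 5), the largest non-coding changes, genes at the same level in HaCaT_ctrl+cyto and HaCaT_ctrl, genes with the smallest interaction p, the most abundant genes, genes with no count in one group and those at the edge of the filter. The largest protein-coding changes were taken among called genes whose groups did not overlap and whose higher group averaged at least 5 CPM. Other list members are named after their values were seen. The members and lists were chosen with earlier results of these data known. Some genes are not reported here.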

Additional observations from a re-analysis of the deposited data

Results flagged for a closer look

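The genes below were singled out from the named genes because their response to the cytokines differed between the lines. That is, the log2 change of HaCaT_sh+cyto over HaCaT_sh minus that of HaCaT_ctrl+cyto over HaCaT_ctrl passed edgeR's interaction test over 12 libraries. They are a part of the 356 genes called in that test and do not stand for the rest. The values are these differences on the log2 scale. A difference can come from the unstimulated as well as from the stimulated levels, so a lower response need not be a lower stimulated level.

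Among barrier and keratin genes the response was higher in the HaCaT_sh line for SPRR3 (4.80), IVL (2.57), KRT16 (2.38), KRT17 (1.87) and KRT13 (1.22), and lower for KLK8 (-1.18). Among defence and antiviral genes it was higher for S100A7 (3.98), S100A8 (3.60), S100A9 (2.83), PIGR (2.58), OASL (2.46), RNASE7 (1.34) and RSAD2 (1.25), and lower for GBP6 (-1.06). Among cytokines and their receptors it was lower for IL1B (-2.48), IL1A (-2.35), IL1RL1 (-1.80), GDF15 (-1.60) and HBEGF (-1.49). Stimulated means in HaCaT_sh+cyto and HaCaT_ctrl+cyto were close for IL1B (87.81 and 93.15 CPM), IL1A (55.75 and 57.09 CPM) and IL1RL1 (932 and 873 CPM). Their unstimulated means were higher in HaCaT_sh than in HaCaT_ctrl (IL1B 8.79 and 1.65, IL1A 2.74 and 0.535, IL1RL1 2.27 and 0.586 CPM). HBEGF was lower in HaCaT_sh+cyto (119 CPM) than in HaCaT_ctrl+cyto (256 CPM). Among presentation and T-cell genes it was higher for HLA-DQA1 (4.24), VTCN1 (2.03) and HLA-DMA (1.13), and HLA-DQA1 can share reads with its close copy. The size of the HLA-DQA1 value rests on a level near 0 in HaCaT_sh (0.0558, 0 and 0.059 CPM). Its stimulated means were 2.84 CPM in HaCaT_sh+cyto and 1.8 CPM in HaCaT_ctrl+cyto. Among serpins and complement it was lower for SERPINB3 (-3.95), SERPINB4 (-3.35), C1S (-1.20), CD55 (-1.19) and SERPINB1 (-1.12). Stimulated means were higher in HaCaT_sh+cyto than in HaCaT_ctrl+cyto for C1S (462 and 362 CPM) and SERPINB1 (378 and 296 CPM). They were lower for SERPINB3 (69.6 and 227 CPM), SERPINB4 (41.3 and 71.7 CPM) and CD55 (246 and 320 CPM).

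IQGAP3 itself differed by -1.96, and of the cell cycle genes CDK1 (-1.42), TYMS (-1.23) and ANLN (-1.15). Of the signalling and matrix genes ITGB8 (1.22), IDO1 (1.18), SOX9 (1.11), COL4A5 (1.06), DUSP5 (1.04) and ID3 (1.03) responded more upward or less downward in the HaCaT_sh line. The last were CMYA5 at 4.83, ITPRIP at -1.21, THBD at -2.01 and CYP1B1 at -2.24. The unstimulated libraries labelled HaCaT_sh held more IQGAP3 than those labelled HaCaT_ctrl, whereas the study took its qPCR and Western blot of the line, not analysed here, to show the knockdown. The differences are given by the labels, and no explanation of them was tested.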

How the results depend on the processing

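The joint comparison gave 2069 to 2098 genes higher and 3008 to 3106 lower over the 6 ways of leaving out 1 library, and stayed within 1.5 times of 2096 and 3073 under the other alternatives, among them edgeR's exact and likelihood ratio tests, limma-voom, DESeq2, RLE scaling, other filters and a test against a 2-fold change (1486 and 2228). The interaction gave 137 to 246 genes higher and 127 to 243 lower when each of 12 libraries was left out. Without a filter 282 genes were lower in the interaction, and at an FDR of 0.05 it called 312 higher and 256 lower, because more genes were tested or the threshold was wider. No result changed direction. Some counts of list members moved. With libraries scaled by size alone, 4 rather than 7 STAT, IRF and SOCS factors rose, and 5 rather than 8 basal layer and hemidesmosome genes. The G1 regulators that rose then numbered 2 rather than 4, and the cholesterol genes 2 rather than 4. Epidermal transcription factors that fell numbered 6 rather than 3, and desmosome genes 3 rather than 1. Of 4680 values of named genes under the alternatives, 39 were no longer called, 10 of them when libraries were scaled by size alone (SOCS6, HLA-DQA2, IFIT5, TJP1, CCND2, BCL2L1, ITGB1, HIF1A, NAPRT and IGFBP3), and MT-CO1 was called there. The samples share only replicate numbers, with deviations of same-numbered libraries correlated at 0.017, -0.019 and -0.025. With a replicate block the joint comparison gave 2088 higher and 3062 lower and the interaction 178 and 153, and HLA-DQA2 lost its call (adjusted p = 0.0111 by edgeR). Genes at a few CPM rest on few counts, and fitted fold changes of genes with no count in a group depend on the tool.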
